A study of Mus musculus with 12 samples.

Results

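Hearts at embryonic day 9.5 (E9.5) were compared with hearts at E8.5 by sequencing the total RNA of the heart-forming region cut out of mouse embryos. The comparison used 6 of the 12 libraries of the series, 3 per stage, chosen by the stage in their labels, and ran across all genes of the count table. Both groups are described only by stage and tissue: the labels name no strain, genotype or treatment, and they do not say whether a library came from 1 embryo or from pooled embryos. The title of the series concerns yylncT, a long non-coding RNA, and the DNA methyltransferase DNMT3B. The mouse stages E8 and E14 were not contrasted here. They entered the filter on low counts, the scaling of libraries and the estimate of the spread between libraries.

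Between these stages the straight heart tube bends to the right and forms a loop. Cells of the second heart field are added at both of its ends, the chambers bulge and begin to form trabeculae, endocardial cells begin to fill the cushions of the atrioventricular canal, and the proepicardium, a mesothelial outgrowth beside the venous pole, supplies the epicardium. The heart already beats and moves primitive red blood cells, and the foregut lies against its back.

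The 3 libraries of E8.5 held 101202593 to 111404849 counts each, and those of E9.5 held 73056001 to 90620692. Levels are given as CPM, read counts divided by the scaled library total, in the order of replicates 1, 2 and 3, and changes as log2 fold changes of E9.5 over E8.5 with their standard error (SE) from edgeR's quasi-likelihood fit. A gene was said to rise or fall where its Benjamini-Hochberg adjusted p was under 0.05 over all genes tested. The p-values measure a spread between libraries pooled over all stages, not that of E8.5 and E9.5 alone. It may be technical, as no label says that libraries of a stage came from separate embryos or litters. In bulk tissue, fewer cells of a type and less RNA per cell cannot be told apart.

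The dissected tissue carried the markers of heart at both stages. Tnnt2, cardiac troponin T, was at 406, 493 and 505 CPM at E8.5 and 631, 633 and 565 CPM at E9.5, and Nkx2-5 at 104, 72.7 and 79.3 CPM at E8.5 and 80.2, 71.2 and 65.9 CPM at E9.5. The libraries of a stage were not alike. E8.5 replicate 3 stood apart on the fourth principal component, at 77.44 against -32.52 to 14.87 in the other 11 libraries, and its summed level of visceral endoderm genes was 2789.6 CPM, against 772 and 665 in E8.5 replicates 1 and 2. E9.5 replicate 1 was the E9.5 library nearest to the E8.5 levels in 78.8% of the risen genes and 62.6% of the fallen genes. Values without a library are given below wherever its loss ended a call, and member counts of a group where a fit of fewer libraries or the span adjustment moved them by over 1.5 times and by at least 2 genes. With 1 library left out the call ended, by edgeR adjusted p, for Tnnt2 (0.0829 without E8.5 replicate 1, 0.0635 without E9.5 replicate 1 and 0.0845 without E9.5 replicate 2).

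Of 28846 genes tested, 5316 (18.4%) rose and 5343 (18.5%) fell from E8.5 to E9.5, and the median log2 fold change was -0.03. These shares are the background for every group of genes described here. Without E8.5 replicate 3, 6968 of 29662 genes (23.5%) rose and 6047 (20.4%) fell. In a fit of the E8.5 and E9.5 libraries alone, 3353 of 27091 genes rose and 2746 fell. After each library was adjusted for a smooth dependence of its counts on gene span, the length of a gene's interval in the genome, 5288 genes (18.3%) rose and 4383 (15.2%) fell. Tested against a log2 fold change of 1 in place of 0, 198 genes rose and 183 fell. The plot of fold change against level shows the calls with the leading genes named.

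**Figure D1:**
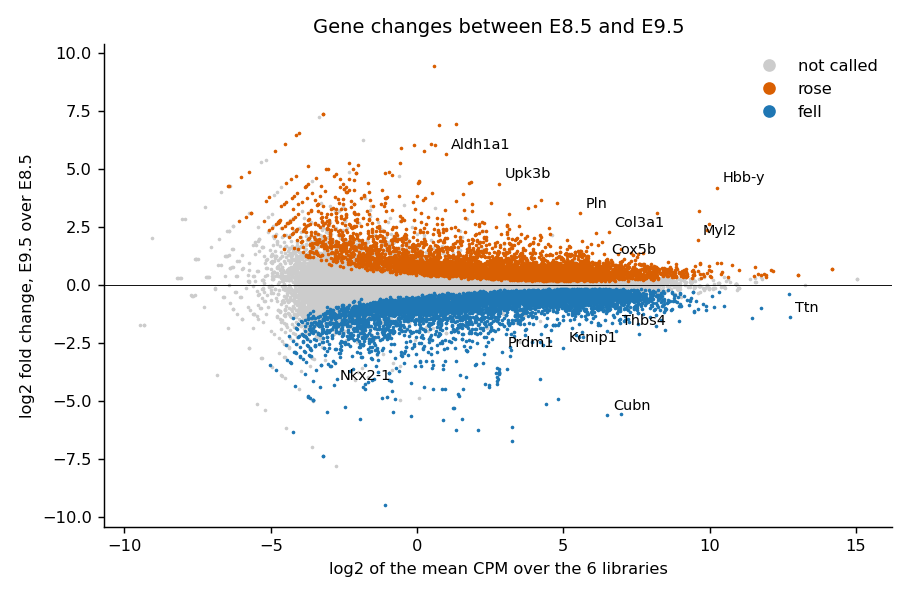
Each point is a gene, with its mean level over the E8.5 and E9.5 libraries on the horizontal axis (log2 CPM) and its log2 fold change of E9.5 over E8.5 on the vertical axis. The 5316 genes that rose are orange, the 5343 that fell are blue and the others grey, and both colours spread over the whole range of levels, with Cubn of the visceral endoderm near the lower edge.

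Grouped by function, the changes ran in different directions. Nuclear genes of oxidative phosphorylation, erythroid genes, globins and epicardial genes rose in most of their members. Foregut and visceral endoderm, pluripotency and left-right genes, FGF signalling genes and the core cardiac transcription factors were the groups with most falls. The plot of group medians gives all 42 groups with and without E8.5 replicate 3.

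**Figure D2:**
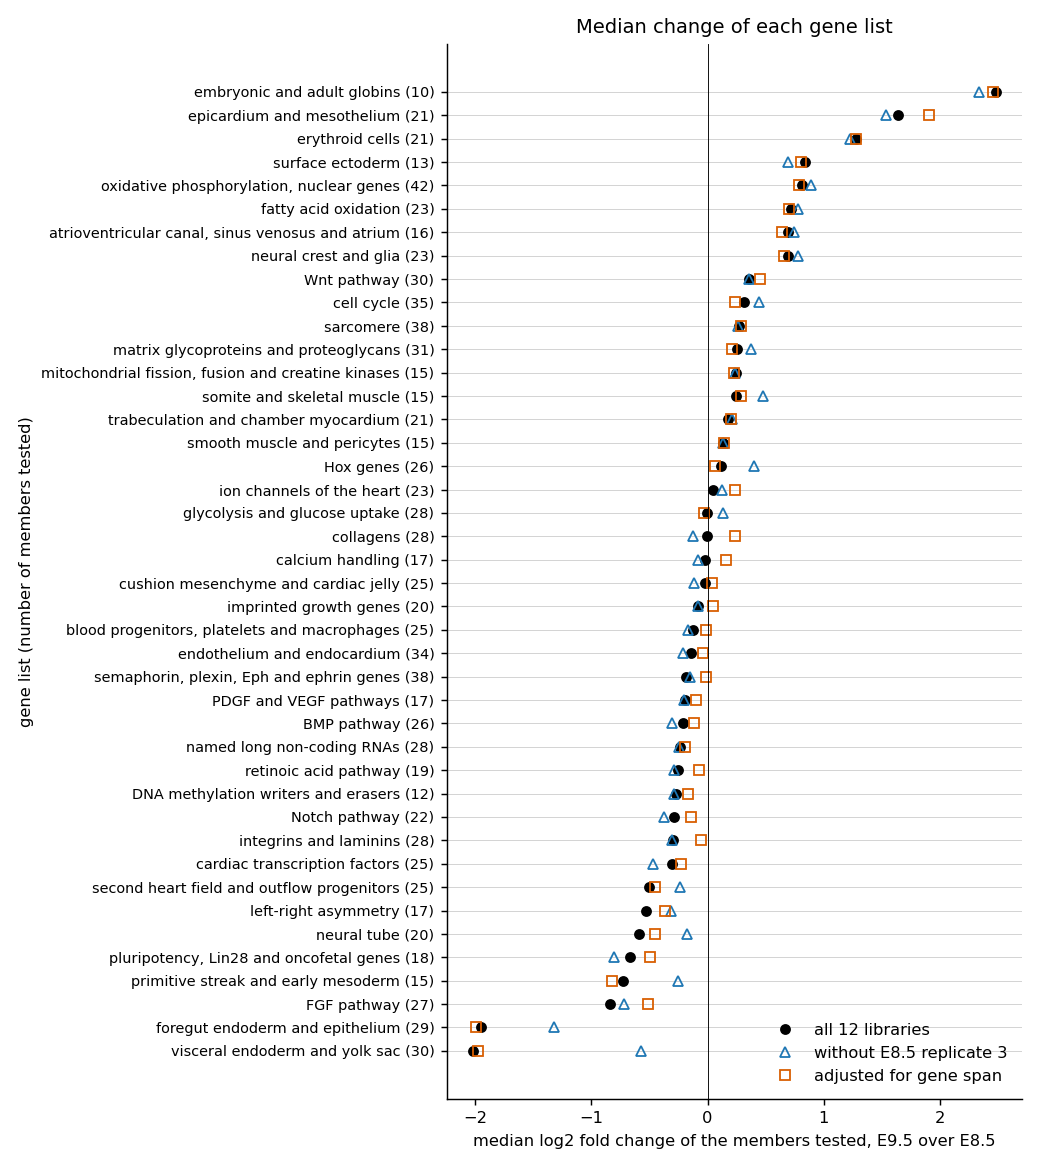
Median log2 fold change (E9.5 over E8.5) of each of 42 gene groups, with circles for all libraries, triangles without E8.5 replicate 3 and squares for the fit adjusted for gene span. Globins (2.48) and epicardium (1.64) lie farthest to the right, and visceral endoderm moves from -2.01 to -0.57 when E8.5 replicate 3 is left out.

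Long and short genes differed in direction. Of 4346 protein-coding genes in the shortest of 4 equal classes by span (0.087 to 9.55 kb), 32.9% rose and 8.35% fell, and of as many in the longest class (57.3 to 4430 kb) 7.43% rose and 44.3% fell. The median log2 fold change went from 0.20 through 0.10 and -0.05 to -0.32 over the 4 classes, and from 0.12 through 0.05 and 0.03 to -0.02 in the span-adjusted fit. Risen coding genes had a median span of 12.7 kb and fallen ones of 63.0 kb. The counts may hold intron reads as well as exon reads, and whether the direction of a long gene reflects its spliced RNA was not tested. Span-adjusted results therefore stand beside each call they end.

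**Figure D3:**
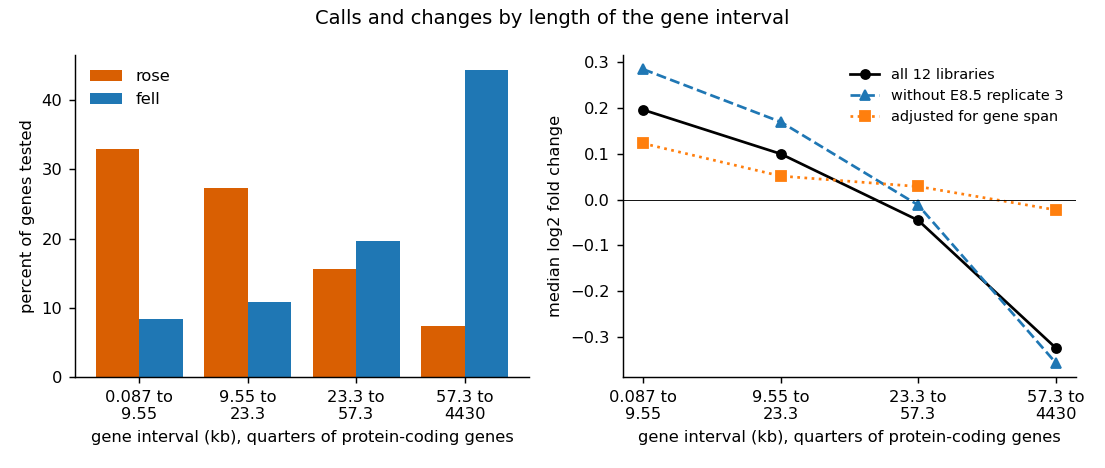
Protein-coding genes in 4 classes of equal size by interval length, shortest to longest, with the percentage that rose (orange) and fell (blue) and the median log2 fold change before and after adjustment for span. The share that fell goes from 8.35% in the shortest class to 44.3% in the longest.

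Genes of the mitochondrial respiratory chain rose almost as a block. The chain passes electrons through complexes I to IV and uses the proton gradient to make ATP at complex V, and most of its subunits are encoded in the nucleus. In this group 41 of 42 nuclear genes of the respiratory chain rose, 0 fell and 1 did not pass the test (median log2 fold change 0.82), beside 18.4% of all genes that rose. Their summed level was 4149, 3268 and 3919.8 CPM at E8.5 and 5885, 6904 and 6921 CPM at E9.5, with no overlap. Leaving out E8.5 replicate 3 gave 41 risen members and the span adjustment 41. Cox6a2 (chromosome 7, 128205435 to 128206387, minus strand), the striated muscle form of a cytochrome c oxidase subunit, rose from 9.31, 5.06 and 4.53 CPM at E8.5 to 21, 26.6 and 28.9 CPM at E9.5 (log2 fold change 2.02, SE 0.23, edgeR adjusted p = 0.000173). Cox5b (chromosome 1, 36691484 to 36693681, plus strand), another subunit of complex IV, rose from 57.1, 49.8 and 59.5 CPM at E8.5 to 108, 124 and 124 CPM at E9.5 (log2 fold change 1.1, SE 0.09, edgeR adjusted p = 2.24e-05). Ndufa5, a subunit of complex I, rose from 20.4, 15.9 and 20.4 CPM at E8.5 to 36.7, 45.1 and 45.8 CPM at E9.5 (log2 fold change 1.17, SE 0.11, edgeR adjusted p = 5.2e-05). Cox6a2, Cox5b and Ndufa5 showed no overlap between the stages, and E9.5 replicate 1 came nearest to E8.5 in each. Atp5g1, a gene for the c ring of ATP synthase, rose from 71.5, 47.9 and 53.5 CPM at E8.5 to 122.7, 128 and 115 CPM at E9.5 (log2 fold change 1.08, SE 0.13, edgeR adjusted p = 0.00015). Atp5g1 separated the stages in all 6 libraries, with E9.5 replicate 3 nearest to E8.5. Atp5l, a membrane subunit of ATP synthase, and Ndufab1, the acyl carrier protein of complex I, rose too (log2 fold changes 1.39 and 0.88). Cox8b, the muscle form of complex IV subunit 8, was the member that did not pass the test, with a log2 fold change of 0.71 (edgeR adjusted p = 0.0536). Reads may be shared between overlapping intervals for Cox6a2 with Itgad (1.11 times its counts).

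NRF1, a transcription factor known to bind promoters of respiratory chain genes, recognises a palindrome-like site, and its core letters GCGCATGC were searched on both strands in the 250 bases before each RefSeq start (RefSeq, GRCm38.p6). They lay in 741 of 32851 windows (2.26%) and in 4 of 33 windows (12.1%) of the 31 oxidative phosphorylation genes that matched. The genes were Cox6a1, Cycs, Ndufa8 and Sdhb. A match is a description of letters and not a site shown to be bound. Cycs, cytochrome c, is shown because it carries the match and rose, and was chosen after its value was seen: 167, 117 and 157 CPM at E8.5 and 246, 283 and 292 CPM at E9.5, a log2 fold change of 0.90 (SE 0.13, edgeR adjusted p = 0.000429). The window before its start (chr6:50566570-50566819, GRCm38, minus strand) reads as follows, with the match in capitals.
Cycs: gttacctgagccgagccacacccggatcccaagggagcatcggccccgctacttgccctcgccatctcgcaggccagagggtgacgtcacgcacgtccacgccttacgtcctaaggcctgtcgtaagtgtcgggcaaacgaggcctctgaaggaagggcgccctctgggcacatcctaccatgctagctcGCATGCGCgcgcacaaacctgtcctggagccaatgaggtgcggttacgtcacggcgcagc

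Fatty acid oxidation, the main fuel route of the adult heart, had rises and no fall, as 16 of 23 fatty acid oxidation genes rose, 0 fell and 7 did not pass the test (median log2 fold change 0.72). For fatty acid oxidation genes, members that fell numbered 2 without E8.5 replicate 3. Cpt1a, the carnitine palmitoyltransferase that admits long-chain fatty acids to mitochondria, rose from 1.22, 1.1 and 0.959 CPM at E8.5 to 2.49, 4.55 and 5.13 CPM at E9.5 (log2 fold change 1.9, SE 0.25, edgeR adjusted p = 0.000289). Fabp3 (chromosome 4, 130308595 to 130315463, plus strand), the heart fatty acid binding protein, rose from 20.04, 15.2 and 19.7 CPM at E8.5 to 36.8, 44.6 and 43.9 CPM at E9.5 (log2 fold change 1.19, SE 0.11, edgeR adjusted p = 4.63e-05). Cpt1a and Fabp3 had no E9.5 value within the E8.5 range, replicate 1 being the nearest in each. Eci1 and Hadhb, enzymes of the beta oxidation cycle, also rose (log2 fold changes 1.12 and 1.03). Of the route from glucose to lactate, 10 of 28 glycolysis and glucose uptake genes rose, 3 fell and 15 did not pass the test (median log2 fold change 0.00). For glycolysis genes, members that rose numbered 6 in the fit of the 2 stages alone, and those that fell numbered 6 with upper-quartile scaling, 5 with the gene span adjustment, 6 without E8.5 replicate 1, 5 without E8.5 replicate 2 and 6 by DESeq2. Ldhb, the lactate dehydrogenase subunit that predominates in heart, rose from 22.7, 15.6 and 14.1 CPM at E8.5 to 42.2, 59.2 and 64.3 CPM at E9.5 (log2 fold change 1.66, SE 0.18, edgeR adjusted p = 0.000109). Ldhb showed no overlap between the stages, and E9.5 replicate 1 came nearest to E8.5. Hk1, Slc2a4 and Gapdh rose as well (log2 fold changes 0.79, 0.78 and 0.57), Slc2a4 being the insulin-responsive glucose transporter. Genes that fell were the glucose transporter Slc2a3, the hexokinase Hk2 and the prolyl hydroxylase Egln3 (log2 fold changes -1.76, -0.58 and -0.58). The log2 fold change moved by over 1.5 times on the linear scale when 1 library was left out for Slc2a3 (-0.86 without E8.5 replicate 3).

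Among creatine kinases and genes of mitochondrial fission, fusion and biogenesis, 7 of 15 genes tested rose, 3 fell and 5 did not pass the test (median log2 fold change 0.25). For these mitochondrial genes, members that rose numbered 4 in the fit of the 2 stages alone, 4 without the E8 libraries, 3 without E8.5 replicate 2 and 3 without E9.5 replicate 2, and those that fell numbered 1 without E8.5 replicate 2 and 1 without E9.5 replicate 3. Creatine kinases buffer ATP in muscle. Ckmt1, a mitochondrial creatine kinase, rose from 0.348, 0.342 and 0.298 CPM at E8.5 to 0.643, 0.725 and 0.788 CPM at E9.5 (log2 fold change 1.12, SE 0.36, edgeR adjusted p = 0.0282). Ckm, the muscle creatine kinase, rose from 0.816, 0.601 and 0.705 CPM at E8.5 to 1.26, 1.24 and 1.4 CPM at E9.5 (log2 fold change 0.87, SE 0.12, edgeR adjusted p = 0.000297). Ckmt1 and Ckm separated the stages in all 6 libraries, the nearest being E9.5 replicate 1 for Ckmt1 and E9.5 replicate 2 for Ckm. Ppif, the mitochondrial cyclophilin, and Fis1, a fission adaptor, rose by log2 fold changes of 0.93 and 0.45. The nuclear receptors Esrrb and Esrrg and the factor Nrf1, regulators of mitochondrial genes, fell (log2 fold changes -1.33, -1.0 and -0.29). Ppargc1a, their coactivator, did not pass the test (log2 fold change 0.09 (edgeR adjusted p = 0.78)). The summed levels of 6 groups by library are plotted over all 4 stages. The call did not survive the loss of 1 library, at the edgeR adjusted p in brackets, for Ckmt1 (0.0569 without E8.5 replicate 1, 0.066 without E8.5 replicate 2, 0.0712 without E9.5 replicate 2 and 0.0843 without E9.5 replicate 3), Esrrg (0.0523 without E8.5 replicate 2 and 0.0553 without E9.5 replicate 3) and Nrf1 (0.0512 without E8.5 replicate 1, 0.124 without E8.5 replicate 2, 0.0516 without E9.5 replicate 1, 0.0887 without E9.5 replicate 2 and 0.112 without E9.5 replicate 3). With the gene span adjustment the call ended, at the edgeR adjusted p in brackets, for Nrf1 (0.971).

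**Figure D4:**
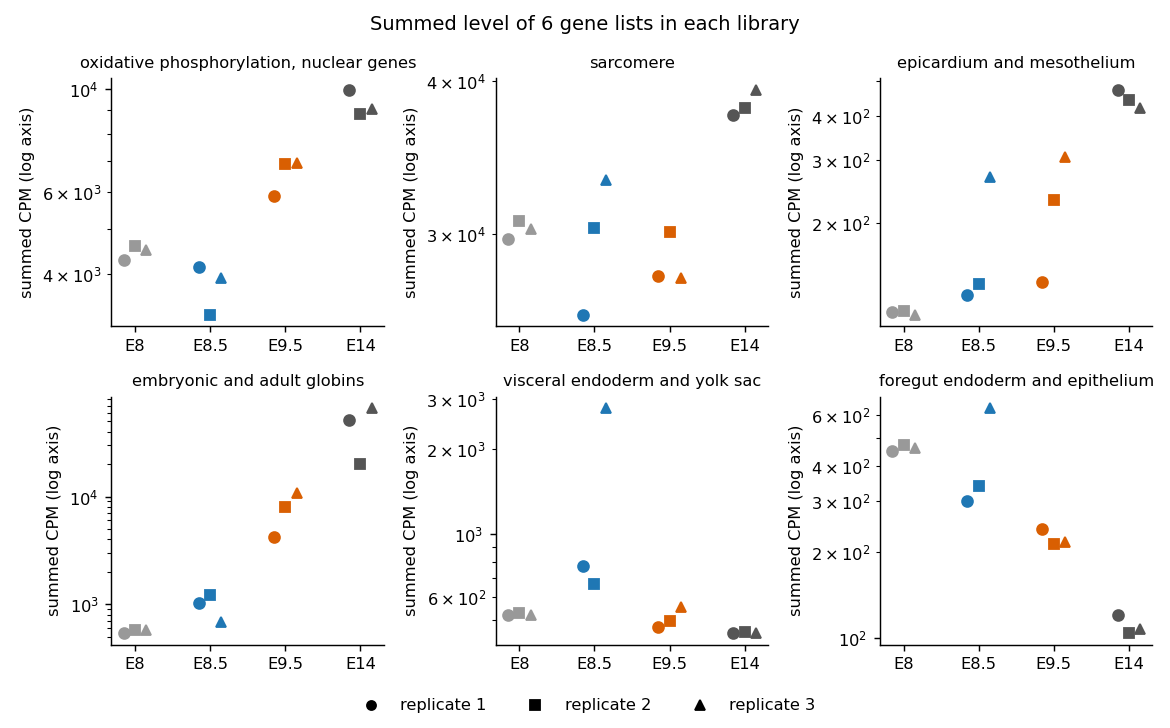
Summed CPM (log axis) of the genes of 6 groups at the 4 stages, a point standing for a library. Oxidative phosphorylation and globin genes are higher in all 3 E9.5 libraries than in all 3 E8.5 libraries, foregut genes are lower, epicardial genes overlap, and E8.5 replicate 3 stands above the other libraries of its stage for visceral endoderm.

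Genes of the contractile apparatus changed in both directions. In all, 17 of 38 sarcomere genes rose, 6 fell and 15 did not pass the test (median log2 fold change 0.27). For sarcomere genes, members that fell numbered 2 in the fit of the 2 stages alone, 10 without E8.5 replicate 3 and 3 without E9.5 replicate 3. Their summed level was 25799, 30352 and 33194 CPM at E8.5 and 27737, 30106 and 27629.5 CPM at E9.5. Myl2 (chromosome 5, 122100951 to 122113472, plus strand), the ventricular regulatory myosin light chain, rose from 425, 271 and 267 CPM at E8.5 to 888, 1357 and 1405 CPM at E9.5 (log2 fold change 1.92, SE 0.20, edgeR adjusted p = 7.63e-05). Myoz2, a Z-disc protein that binds calcineurin, rose from 1.02, 0.712 and 0.416 CPM at E8.5 to 3.28, 8.05 and 8.52 CPM at E9.5 (log2 fold change 3.2, SE 0.36, edgeR adjusted p = 0.000173). Tnni3 (chromosome 7, 4518305 to 4524229, minus strand), cardiac troponin I, rose from 89.8, 59.98 and 52.8 CPM at E8.5 to 152, 181 and 172 CPM at E9.5 (log2 fold change 1.32, SE 0.16, edgeR adjusted p = 0.000177). Myl2, Myoz2 and Tnni3 had no E9.5 value within the E8.5 range, replicate 1 being the nearest in each. Csrp3, the muscle LIM protein of the Z disc, rose from 142, 112 and 106 CPM at E8.5 to 212, 247 and 219 CPM at E9.5 (log2 fold change 0.91, SE 0.11, edgeR adjusted p = 0.000197). Csrp3 showed no overlap between the stages, and E9.5 replicate 1 came nearest to E8.5. Ttn led the falls. Ttn, the giant spring of the sarcomere, fell from 4825, 10609 and 14423 CPM at E8.5 to 4236, 3943 and 3149 CPM at E9.5 (log2 fold change -1.4, SE 0.31, edgeR adjusted p = 0.0055). Ttn separated the stages in all 6 libraries, with E9.5 replicate 1 nearest to E8.5. Xirp2, Pdlim5 and Ankrd1, proteins of intercalated and Z discs, fell by log2 fold changes of -1.05, -0.65 and -0.43. Leaving out a single library ended the call, with its edgeR adjusted p, for Xirp2 (0.0511 without E8.5 replicate 2 and 0.0537 without E9.5 replicate 3).

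Several defining contractile genes stayed without a called change or changed little. Myh6, the alpha myosin heavy chain, was at 2428, 2818 and 2758 CPM at E8.5 and 3277, 3377 and 3107 CPM at E9.5 and did not pass the test (log2 fold change 0.29, SE 0.11, edgeR adjusted p = 0.0505). Myh7, the beta myosin heavy chain, was at 3092, 3099 and 3011 CPM at E8.5 and 3008, 4364 and 4192 CPM at E9.5 and did not pass the test (log2 fold change 0.33, SE 0.14, edgeR adjusted p = 0.0848). Myl7, the atrial myosin light chain, rose from 1278, 975 and 1096 CPM at E8.5 to 1631, 1615 and 1412 CPM at E9.5 (log2 fold change 0.48, SE 0.14, edgeR adjusted p = 0.0184). Myh6 and Myl7 had no E9.5 value within the E8.5 range, replicate 3 being the nearest in each, whereas Myh7 overlapped between the stages. Tnnt2 had a log2 fold change of 0.38 (SE 0.12, edgeR adjusted p = 0.0257), and Actn2, the actinin of the Z disc, of -0.32 (edgeR adjusted p = 0.245). Calls that hung on 1 library, with the edgeR adjusted p, were those of Myl7 (0.0635 without E8.5 replicate 2 and 0.0644 without E9.5 replicate 2).

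Of the calcium cycle that drives each beat, 4 of 17 calcium handling genes rose, 4 fell and 9 did not pass the test (median log2 fold change -0.02). For calcium handling genes, members that fell numbered 7 without E8.5 replicate 3. Their median log2 fold change was 0.15 with the gene span adjustment. Pln (chromosome 10, 53337686 to 53345999, plus strand), phospholamban, the inhibitor of the reticulum calcium pump, rose from 12.5, 11.4 and 5.97 CPM at E8.5 to 36.6, 98.3 and 120.1 CPM at E9.5 (log2 fold change 3.1, SE 0.39, edgeR adjusted p = 0.000318). Pln showed no overlap between the stages, and E9.5 replicate 1 came nearest to E8.5. Casq2 and Casq1, the calcium stores of the reticulum, and Srl, sarcalumenin, rose (log2 fold changes 1.38, 0.72 and 0.47). The sodium-calcium exchanger Slc8a1 was at 3844, 6085 and 3771 CPM at E8.5 and 2824, 2498 and 1623 CPM at E9.5, a log2 fold change of -0.98 (SE 0.26, edgeR adjusted p = 0.0124). The ryanodine receptor Ryr2 and the IP3 receptor Itpr1 fell (log2 fold changes -0.89 and -0.85), as did the reticulum protein Asph (log2 fold change -0.34), whose direction turned with the span adjustment, to 0.05. Atp2a2, the calcium pump itself, did not pass the test (log2 fold change -0.21 (edgeR adjusted p = 0.0911)). Single libraries, left out, ended the call by edgeR adjusted p of Srl (0.0511 without E9.5 replicate 2) and Slc8a1 (0.0531 without E8.5 replicate 2 and 0.0508 without E9.5 replicate 3). The span adjustment ended, by edgeR adjusted p, the call of Asph (0.741). Intervals overlap, and reads may be shared, for Pln with Cep85l (1.87 times its counts).

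Ion channel genes changed in both directions. Among them 8 of 23 channel genes rose, 6 fell and 9 did not pass the test (median log2 fold change 0.05). For channel genes, members that fell numbered 3 in the fit of the 2 stages alone, 3 without E8.5 replicate 2 and 3 without E9.5 replicate 3. Kcnj2, the inward rectifier that sets the resting potential, rose from 1.78, 0.971 and 1.62 CPM at E8.5 to 4.09, 6.82 and 6.55 CPM at E9.5 (log2 fold change 2.0, SE 0.23, edgeR adjusted p = 0.000134). Kcnj3, a subunit of the acetylcholine-gated potassium channel, rose from 2.86, 2.19 and 0.850 CPM at E8.5 to 6.04, 10.4 and 8.43 CPM at E9.5 (log2 fold change 2.08, SE 0.35, edgeR adjusted p = 0.00137). Kcnj2 and Kcnj3 separated the stages in all 6 libraries, with E9.5 replicate 1 nearest to E8.5 in each. Kcna5 and Kcne1, of the rapid atrial and slow delayed potassium currents, also rose (log2 fold changes 1.83 and 1.74). Cacna1c, the main pore subunit of the cardiac L-type channel, fell from 744, 1392 and 785 CPM at E8.5 to 574, 442 and 321 CPM at E9.5 (log2 fold change -1.13, SE 0.30, edgeR adjusted p = 0.0127). Cacna1c had no E9.5 value within the E8.5 range, replicate 1 being the nearest. Cacna1d, Cacnb2 and the potassium channel Kcnq1 fell too (log2 fold changes -1.32, -1.16 and -0.68). The pacemaker channel Hcn4 did not pass the test (log2 fold change -0.41 (edgeR adjusted p = 0.155)). With 1 library left out the call ended, by edgeR adjusted p, for Cacna1c (0.0556 without E8.5 replicate 2 and 0.0546 without E9.5 replicate 3) and Kcnq1 (0.0652 without E8.5 replicate 2 and 0.0681 without E9.5 replicate 3). After adjustment for gene span the edgeR adjusted p no longer passed for Kcnq1 (0.246). Leaving out 1 library moved by over 1.5 times the change of Kcna5 (2.46 without E8.5 replicate 1).

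Chamber genes were led by natriuretic peptide A. Here 7 of 21 genes of trabeculation and chamber muscle rose, 4 fell and 10 did not pass the test (median log2 fold change 0.17). For trabeculation genes, members that rose numbered 4 in the fit of the 2 stages alone, and those that fell numbered 2 with the gene span adjustment. Nppa (chromosome 4, 148000722 to 148002079, plus strand), natriuretic peptide A, a marker of working chamber muscle, rose from 162, 106 and 82.7 CPM at E8.5 to 241, 327 and 333 CPM at E9.5 (log2 fold change 1.36, SE 0.21, edgeR adjusted p = 0.000763). Hey2, the Notch target of compact ventricular muscle, rose from 28.5, 23.1 and 25.8 CPM at E8.5 to 36.9, 44.9 and 42.2 CPM at E9.5 (log2 fold change 0.68, SE 0.09, edgeR adjusted p = 0.000291). Nppa and Hey2 showed no overlap between the stages, and E9.5 replicate 1 came nearest to E8.5 in each. Cited1, Gja5 and Adamts1 rose as well (log2 fold changes 0.80, 0.76 and 0.74), Adamts1 being a protease that ends trabecular growth by clearing cardiac jelly. Nrg1, neuregulin, the endocardial ligand required for trabeculae, fell from 85, 110.4 and 78.2 CPM at E8.5 to 61.3, 58.9 and 54.3 CPM at E9.5 (log2 fold change -0.65, SE 0.13, edgeR adjusted p = 0.00251). Nrg1 separated the stages in all 6 libraries, with E9.5 replicate 1 nearest to E8.5. Its receptor gene Erbb4, together with Slit3 and Sema3a, fell (log2 fold changes -0.96, -1.03 and -0.66). Bmp10, the trabecular growth factor, was at 30.8, 30.9 and 28.8 CPM at E8.5 and 30.8, 36.8 and 36.7 CPM at E9.5 and did not pass the test (log2 fold change 0.21 (edgeR adjusted p = 0.129)). Nppb, natriuretic peptide B, was at 65.5, 65.3 and 57.6 CPM at E8.5 and 67.3, 81.1 and 78 CPM at E9.5 and did not pass either (log2 fold change 0.26 (edgeR adjusted p = 0.072)). The call did not survive the loss of 1 library, at the edgeR adjusted p in brackets, for Cited1 (0.0606 without E9.5 replicate 2 and 0.0724 without E9.5 replicate 3) and Erbb4 (0.053 without E8.5 replicate 2). Adjusted for span, the edgeR adjusted p left no call for Nrg1 (0.589), Erbb4 (0.0896) and Sema3a (0.193). Overlapping intervals that may share reads were those of Gja5 with Gpr89 (1.14 times its counts).

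At the inflow and the atrioventricular canal the called changes were mostly rises, where 9 of 16 genes of canal, sinus venosus and atrium rose, 1 fell and 6 did not pass the test (median log2 fold change 0.69). Tbx18 (chromosome 9, 87702800 to 87731260, minus strand), a T-box factor of the sinus horns and of the proepicardium, rose from 4.21, 2.54 and 1.85 CPM at E8.5 to 16.8, 32.6 and 40.9 CPM at E9.5 (log2 fold change 3.39, SE 0.34, edgeR adjusted p = 9.82e-05). Shox2 (chromosome 3, 66971727 to 66981771, minus strand), a homeobox factor of the sinoatrial node, rose from 0.782, 0.610 and 0.832 CPM at E8.5 to 6.5, 4.62 and 5.16 CPM at E9.5 (log2 fold change 2.87, SE 0.20, edgeR adjusted p = 8.03e-06). Tbx3, a T-box repressor of chamber genes in the conduction system, fell from 20.3, 17.9 and 18.3 CPM at E8.5 to 13.3, 13.6 and 13.5 CPM at E9.5 (log2 fold change -0.48, SE 0.08, edgeR adjusted p = 0.00102). Tbx18, Shox2 and Tbx3 had no E9.5 value within the E8.5 range, nearest to it being E9.5 replicate 1 for Tbx18 and E9.5 replicate 2 for Shox2 and Tbx3. Nr2f1, a nuclear receptor of atrial muscle, rose from 4.09, 1.61 and 1.97 CPM at E8.5 to 12.7, 11 and 11.9 CPM at E9.5 (log2 fold change 2.22, SE 0.27, edgeR adjusted p = 0.000186). Nr2f1 showed no overlap between the stages, and E9.5 replicate 2 came nearest to E8.5. Tbx2 and Bmp2, which act together in the canal, were at 29.3, 20.1 and 15.8 CPM at E8.5 and 22, 16.7 and 17.3 CPM at E9.5 and at 26.8, 15.6 and 18.2 CPM at E8.5 and 22.7, 16.1 and 14.6 CPM at E9.5. Neither passed the test (Tbx2 (log2 fold change -0.22, edgeR adjusted p = 0.376) and Bmp2 (log2 fold change -0.18, edgeR adjusted p = 0.483)). Shared reads are possible for the overlapping Shox2 with Rsrc1 (35.2 times its counts).

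In the vessel wall group 5 of 15 smooth muscle and pericyte genes rose, 4 fell and 6 did not pass the test (median log2 fold change 0.14). For smooth muscle genes, members that fell numbered 2 in the fit of the 2 stages alone. They also numbered 2 without the E8 libraries, the E14 libraries, E8.5 replicate 2 or E9.5 replicate 2 or 3. The potassium channel subunit Abcc9, the adhesion molecule Mcam and the filament protein Des rose (log2 fold changes 1.4, 0.80 and 0.56), and Myocd, Myh11, Rgs5 and Smtn fell (log2 fold changes -1.04, -0.89, -0.47 and -0.24). The plot of single genes shows 16 members of these and other groups by library. Leaving out a single library ended the call, with its edgeR adjusted p, for Rgs5 (0.0637 without E8.5 replicate 2, 0.108 without E8.5 replicate 3, 0.0909 without E9.5 replicate 1, 0.0579 without E9.5 replicate 2 and 0.0622 without E9.5 replicate 3) and Smtn (0.079 without E8.5 replicate 1, 0.0939 without E8.5 replicate 2, 0.113 without E9.5 replicate 2 and 0.136 without E9.5 replicate 3). With the gene span adjustment the call ended, at the edgeR adjusted p in brackets, for Rgs5 (0.0887).

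**Figure D5:**
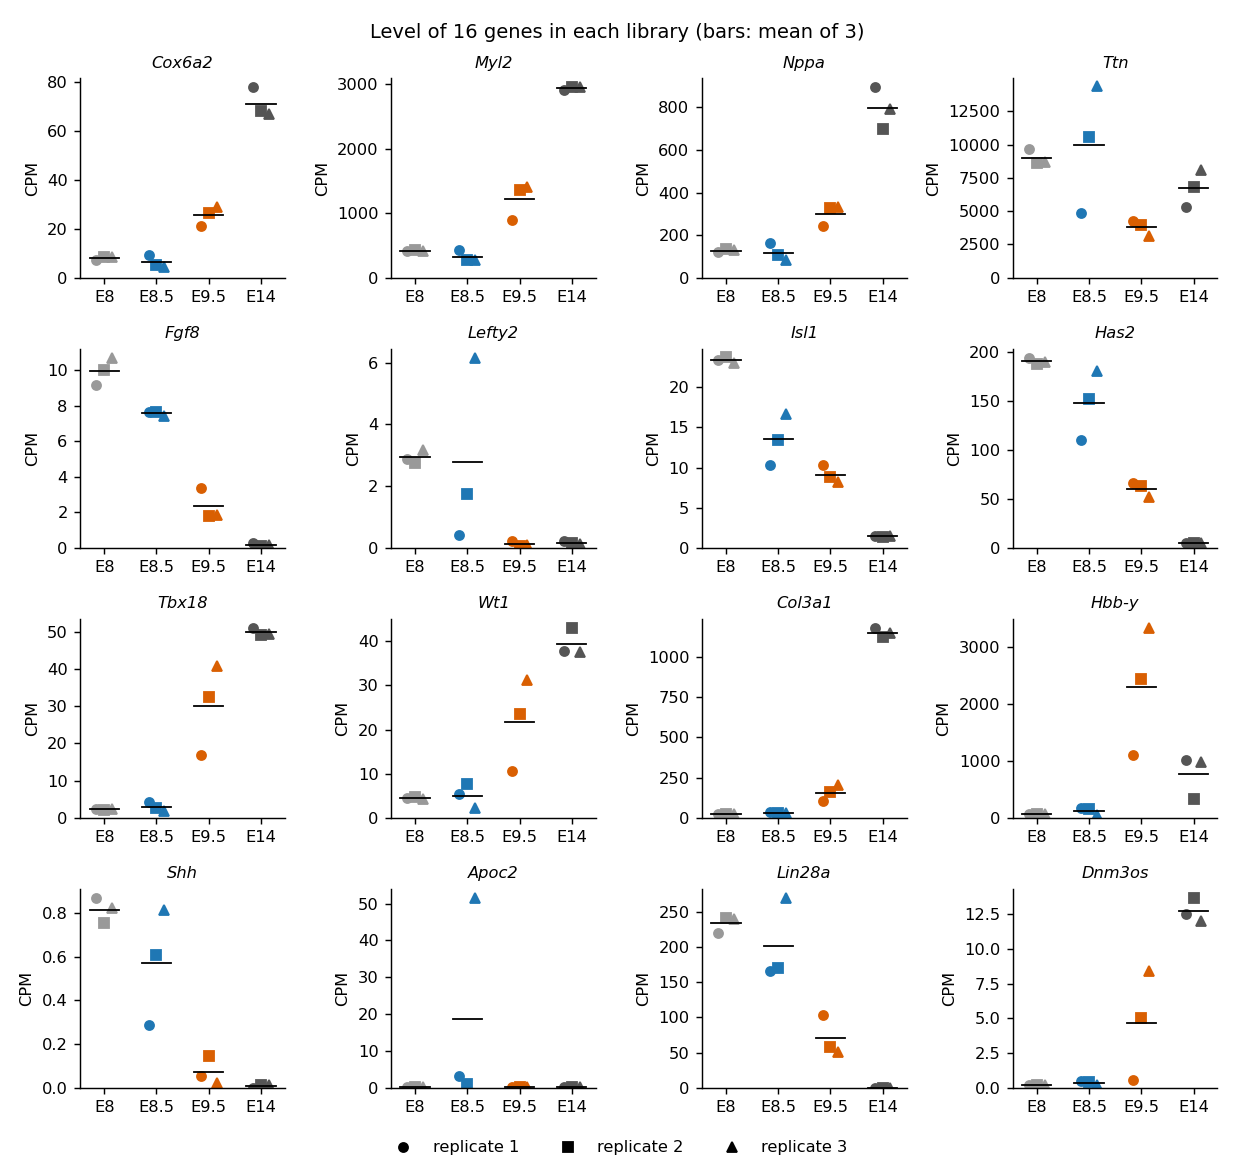
CPM of 16 genes at the 4 stages, with points for libraries and bars for the mean of 3. Cox6a2, Myl2, Nppa, Tbx18, Wt1, Col3a1 and Hbb-y are higher at E9.5 than at E8.5, and Fgf8, Lefty2, Shh, Apoc2 and Lin28a are lower.

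The core cardiac transcription factors, which hold the cardiac programme, had more falls than rises. Of the group, 1 of 25 factors rose, 12 fell and 12 did not pass the test (median log2 fold change -0.31), beside 18.5% of all genes that fell. For these transcription factors, members that rose numbered 3 with the gene span adjustment, and those that fell numbered 6 in the fit of the 2 stages alone. Nkx2-5 (chromosome 17, 26838664 to 26841565, minus strand), the homeobox factor of cardiac muscle with levels given above, did not pass the test (log2 fold change -0.24, SE 0.12, edgeR adjusted p = 0.153). Gata4, the zinc finger factor of cardiac mesoderm, was at 304, 303 and 191 CPM at E8.5 and 258, 216 and 206 CPM at E9.5 and did not pass the test (log2 fold change -0.23, SE 0.15, edgeR adjusted p = 0.257). Tbx5, the T-box factor of the left ventricle and atria, was at 94.8, 106 and 57.1 CPM at E8.5 and 86.3, 64.3 and 62.5 CPM at E9.5 and did not pass the test (log2 fold change -0.28, SE 0.19, edgeR adjusted p = 0.273). Nkx2-5, Gata4 and Tbx5 overlapped between the stages. Tbx20, a T-box factor of chamber muscle and cushions, fell from 579.7, 564 and 421 CPM at E8.5 to 440.2, 373 and 345 CPM at E9.5 (log2 fold change -0.44, SE 0.13, edgeR adjusted p = 0.0196). Hand1, the basic helix-loop-helix factor of the outer curvature, was at 22.4, 20.2 and 17.2 CPM at E8.5 and 19.8, 17.9 and 17.2 CPM at E9.5 and did not pass the test (log2 fold change -0.13, SE 0.10, edgeR adjusted p = 0.332). Hand2, its right ventricular relative, rose from 38.8, 38.1 and 33.8 CPM at E8.5 to 51.6, 48.2 and 44.1 CPM at E9.5 (log2 fold change 0.38, SE 0.09, edgeR adjusted p = 0.00589). Hand2 separated the stages in all 6 libraries, with E9.5 replicate 3 nearest to E8.5, whereas Tbx20 and Hand1 overlapped between the stages. The falls were led by Tead1, Myocd, Nkx2-6 and Meis2 (log2 fold changes -1.16, -1.04, -0.98 and -0.90). Calls that hung on 1 library, with the edgeR adjusted p, were those of Tbx20 (0.0663 without E8.5 replicate 1, 0.0617 without E8.5 replicate 2, 0.0715 without E9.5 replicate 2 and 0.0892 without E9.5 replicate 3). The span adjustment ended, by edgeR adjusted p, the call of Tbx20 (0.0636).

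Second heart field genes, whose cells build the outflow tract, the right ventricle and part of the atria, changed in both directions, and 6 of 25 genes tested rose, 10 fell and 9 did not pass the test (median log2 fold change -0.51). For second heart field genes, members that fell numbered 3 in the fit of the 2 stages alone, where 5 rose, 6 without E8.5 replicate 2 and 6 without E9.5 replicate 2. Without E8.5 replicate 3, 6 rose and 7 fell, and the median log2 fold change was -0.24. Fgf8 (chromosome 19, 45736798 to 45742915, minus strand), the growth factor of the anterior second heart field, fell from 7.67, 7.64 and 7.44 CPM at E8.5 to 3.36, 1.77 and 1.86 CPM at E9.5 (log2 fold change -1.71, SE 0.22, edgeR adjusted p = 0.000267). Tbx1, the T-box factor of pharyngeal mesoderm, fell from 0.756, 1.83 and 1.75 CPM at E8.5 to 0.249, 0.589 and 0.696 CPM at E9.5 (log2 fold change -1.49, SE 0.41, edgeR adjusted p = 0.0145). Fgf10, the growth factor that marks the anterior field, fell from 26.1, 32 and 13.6 CPM at E8.5 to 15.1, 10.9 and 10.8 CPM at E9.5 (log2 fold change -0.96, SE 0.28, edgeR adjusted p = 0.0201). Fgf8 and Tbx1 had no E9.5 value within the E8.5 range, nearest to it being E9.5 replicate 1 for Fgf8 and E9.5 replicate 3 for Tbx1, whereas Fgf10 overlapped between the stages. Isl1, the LIM homeobox factor of the whole field, fell from 10.3, 13.5 and 16.7 CPM at E8.5 to 10.3, 8.81 and 8.17 CPM at E9.5 (log2 fold change -0.57, SE 0.14, edgeR adjusted p = 0.00981). Tcf21, a factor of pharyngeal mesoderm and, later, of epicardium, rose from 0.501, 0.601 and 0.588 CPM at E8.5 to 0.906, 3.19 and 4.0 CPM at E9.5 (log2 fold change 2.26, SE 0.40, edgeR adjusted p = 0.00154). Tcf21 showed no overlap between the stages, and E9.5 replicate 1 came nearest to E8.5. For Isl1 the stages met at 10.3 CPM in replicate 1 of each. Ebf3, Msc and the venous and atrial receptor Nr2f2 rose (log2 fold changes 0.99, 3.12 and 1.6), Msc being a factor of branchiomeric muscle. Single libraries, left out, ended the call by edgeR adjusted p of Tbx1 (0.0525 without E8.5 replicate 2), Fgf10 (0.0534 without E8.5 replicate 1, 0.0883 without E8.5 replicate 2, 0.0751 without E9.5 replicate 2 and 0.0781 without E9.5 replicate 3) and Ebf3 (0.0509 without E9.5 replicate 3). By over 1.5 times, the loss of 1 library moved Msc (4.83 without E8.5 replicate 2). Reads may be shared between overlapping intervals for Msc with Gm9947 (1.0 times its counts).

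Among genes of left-right asymmetry falls were the more common. The Nodal cascade sets the side of looping and is switched off after it has acted. By the test 1 of 17 left-right genes rose, 9 fell and 7 did not pass the test (median log2 fold change -0.53). For left-right genes, members that fell numbered 4 in the fit of the 2 stages alone and 5 without E9.5 replicate 2 or 3. Their median log2 fold change was -0.32 without E8.5 replicate 3. Lefty2 (chromosome 1, 180893108 to 180899103, plus strand), the Nodal antagonist of left lateral mesoderm, fell from 0.399, 1.76 and 6.16 CPM at E8.5 to 0.223, 0.0680 and 0.0799 CPM at E9.5 (log2 fold change -4.5, SE 0.88, edgeR adjusted p = 0.00304). Lefty1, the midline Nodal antagonist, fell from 0.0510, 0.213 and 0.805 CPM at E8.5 to 0.0131, 0.0113 and 0 CPM at E9.5 (log2 fold change -5.27, SE 1.22, edgeR adjusted p = 0.00635). Shh (chromosome 5, 28456815 to 28467256, minus strand), sonic hedgehog, made by midline and foregut endoderm, fell from 0.289, 0.610 and 0.814 CPM at E8.5 to 0.0525, 0.147 and 0.0228 CPM at E9.5 (log2 fold change -2.91, SE 0.53, edgeR adjusted p = 0.00173). Lefty2, Lefty1 and Shh separated the stages in all 6 libraries, the nearest being E9.5 replicate 1 for Lefty2 and Lefty1 and E9.5 replicate 2 for Shh. Ihh, Indian hedgehog, fell from 0.196, 0.213 and 2.95 CPM at E8.5 to 0.144, 0.0680 and 0.0685 CPM at E9.5 (log2 fold change -3.58, SE 1.02, edgeR adjusted p = 0.0186). Ihh had no E9.5 value within the E8.5 range, replicate 1 being the nearest. Nodal itself did not pass the test (log2 fold change -0.35 (edgeR adjusted p = 0.549)). With 1 library left out the call ended, by edgeR adjusted p, for Ihh (0.093 without E8.5 replicate 3, 0.0727 without E9.5 replicate 2 and 0.0726 without E9.5 replicate 3). A single library moved by over 1.5 times the change of Lefty2 (-3.11 without E8.5 replicate 3 and -5.20 without E9.5 replicate 1), Lefty1 (-3.80 without E8.5 replicate 3), Shh (-3.90 without E9.5 replicate 2) and Ihh (-1.10 without E8.5 replicate 3). Intervals overlap, and reads may be shared, for Shh with 9530036O11Rik (15.8 times its counts).

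FGF signalling, which keeps second heart field cells proliferating, also had more falls than rises, as 4 of 27 FGF pathway genes rose, 15 fell and 8 did not pass the test (median log2 fold change -0.84). For FGF genes, members that rose numbered 1 in the fit of the 2 stages alone and 2 without E9.5 replicate 2 or 3. Besides Fgf8 and Fgf10, the ligands Fgf16 and Fgf17 and the receptor Fgfr4 fell (log2 fold changes -2.84, -1.69 and -2.41). Fgf5, Fgf9, Fgf18 and Fgf12 rose (log2 fold changes 2.32, 1.41, 0.86 and 0.75). Il17rd, a feedback antagonist of FGF receptors that was not in the list, fell from 30.6, 49.5 and 34.1 CPM at E8.5 to 11.5, 9.15 and 9.28 CPM at E9.5 (log2 fold change -1.93, SE 0.16, edgeR adjusted p = 2.39e-05). Il17rd was named under a rule that required no overlap between the stages, and E9.5 replicate 1 came nearest to E8.5. Spry4 and Etv5, other genes of FGF feedback chosen after their values were seen, fell (log2 fold changes -1.0 and -1.0). The call did not survive the loss of 1 library, at the edgeR adjusted p in brackets, for Fgf16 (0.0509 without E8.5 replicate 3 and 0.0649 without E9.5 replicate 2), Fgf17 (0.0525 without E9.5 replicate 3), Fgf18 (0.0757 without E8.5 replicate 1, 0.056 without E9.5 replicate 2 and 0.132 without E9.5 replicate 3) and Fgf12 (0.0661 without E9.5 replicate 2 and 0.0701 without E9.5 replicate 3). The log2 fold change moved by over 1.5 times on the linear scale when 1 library was left out for Fgf16 (-1.68 without E8.5 replicate 3), Fgfr4 (-1.06 without E8.5 replicate 3) and Fgf5 (2.99 without E8.5 replicate 3 and 1.74 without E9.5 replicate 3).

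The epicardial and mesothelial genes had, after the globins, the highest median of the 42 groups. Of them 15 of 21 genes rose, 2 fell and 4 did not pass the test (median log2 fold change 1.64). Their summed level was 125, 135 and 268 CPM at E8.5 and 136, 231 and 306 CPM at E9.5, so that E9.5 replicate 1 held the least of its stage. Wt1 (chromosome 2, 105126529 to 105173616, plus strand), the Wilms tumour factor of epicardium and mesothelium, rose from 5.29, 7.63 and 2.2 CPM at E8.5 to 10.6, 23.5 and 31.3 CPM at E9.5 (log2 fold change 2.11, SE 0.43, edgeR adjusted p = 0.0038). Upk3b (chromosome 5, 136038496 to 136046487, plus strand), a uroplakin of mesothelial surfaces, rose from 0.433, 0.943 and 0.561 CPM at E8.5 to 3.03, 14.4 and 22.4 CPM at E9.5 (log2 fold change 4.37, SE 0.62, edgeR adjusted p = 0.000618). Aldh1a1, a retinaldehyde dehydrogenase, rose from 0.111, 0.0185 and 0.0995 CPM at E8.5 to 0.263, 4.09 and 7.27 CPM at E9.5 (log2 fold change 5.63, SE 1.0, edgeR adjusted p = 0.00186). Wt1, Upk3b and Aldh1a1 separated the stages in all 6 libraries, with E9.5 replicate 1 nearest to E8.5 in each. Itga4, the integrin subunit by which epicardial cells attach to muscle, rose from 2.31, 2.04 and 3.1 CPM at E8.5 to 6.51, 30.1 and 38.4 CPM at E9.5 (log2 fold change 3.33, SE 0.50, edgeR adjusted p = 0.000799). Itga4 had no E9.5 value within the E8.5 range, replicate 1 being the nearest. Krt19 and the endocytic receptor Lrp2, a gene shared with visceral endoderm, fell (log2 fold changes -0.45 and -2.25). Msln, Bnc2, Gpm6a and C3 did not pass the test (Msln (log2 fold change 0.38, edgeR adjusted p = 0.671), Bnc2 (log2 fold change 0.39, edgeR adjusted p = 0.169), Gpm6a (log2 fold change -0.31, edgeR adjusted p = 0.136) and C3 (log2 fold change -0.26, edgeR adjusted p = 0.811)). Leaving out 1 library moved by over 1.5 times the change of Upk3b (3.76 without E9.5 replicate 3), Aldh1a1 (4.81 without E9.5 replicate 3) and Lrp2 (-1.05 without E8.5 replicate 3).

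Cushion genes changed in both directions. Cushions form where endocardial cells turn into mesenchyme within the hyaluronan-rich jelly. In number, 8 of 25 cushion and jelly genes rose, 6 fell and 11 did not pass the test (median log2 fold change -0.02). For cushion genes, members that fell numbered 3 in the fit of the 2 stages alone, 2 with the gene span adjustment, 3 without E8.5 replicate 2, 11 without E8.5 replicate 3, 3 without E9.5 replicate 2 and 3 without E9.5 replicate 3. Sox9, the factor of cushion mesenchyme and cartilage, rose from 2.68, 1.41 and 1.02 CPM at E8.5 to 4.11, 6.74 and 8.61 CPM at E9.5 (log2 fold change 1.93, SE 0.33, edgeR adjusted p = 0.00123). Postn, periostin, of cushion matrix, rose from 9.24, 10.1 and 13.5 CPM at E8.5 to 26.8, 28.9 and 50.2 CPM at E9.5 (log2 fold change 1.69, SE 0.22, edgeR adjusted p = 0.000266). Twist1, the helix-loop-helix factor of mesenchyme, rose from 3.96, 2.78 and 4.46 CPM at E8.5 to 6.77, 10.2 and 13.4 CPM at E9.5 (log2 fold change 1.44, SE 0.22, edgeR adjusted p = 0.00069). Sox9, Postn and Twist1 showed no overlap between the stages, and E9.5 replicate 1 came nearest to E8.5 in each. Fbln2, a matrix fibulin, rose too (log2 fold change 1.77). Has2 and Vcan, which make the jelly, were among the falls. Has2 (chromosome 15, 56665627 to 56694539, minus strand), the synthase of hyaluronan, fell from 110.1, 152 and 181 CPM at E8.5 to 66.1, 63.1 and 52 CPM at E9.5 (log2 fold change -1.29, SE 0.15, edgeR adjusted p = 0.000147). Vcan, versican, the proteoglycan bound to hyaluronan, fell from 1126, 1401 and 1114 CPM at E8.5 to 675, 666 and 603 CPM at E9.5 (log2 fold change -0.91, SE 0.11, edgeR adjusted p = 0.000221). Has2 and Vcan separated the stages in all 6 libraries, with E9.5 replicate 1 nearest to E8.5 in each. Fbln1 and Tbx20 fell by log2 fold changes of -0.45 and -0.44. After adjustment for gene span the edgeR adjusted p no longer passed for Fbln1 (0.0889).

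Collagens went both ways: 6 of 28 collagen genes rose, 10 fell and 12 did not pass the test (median log2 fold change -0.01). Among collagens 10 rose and 5 fell with the gene span adjustment, and their median log2 fold change was 0.23. Col3a1 (chromosome 1, 45311538 to 45349706, plus strand), a fibrillar collagen of loose connective tissue, rose from 34.4, 30.2 and 32.2 CPM at E8.5 to 105, 158 and 203 CPM at E9.5 (log2 fold change 2.27, SE 0.18, edgeR adjusted p = 2.24e-05). Col1a1, the main chain of type I collagen, rose from 27.7, 27.5 and 20.4 CPM at E8.5 to 41.8, 34.7 and 57.7 CPM at E9.5 (log2 fold change 0.83, SE 0.18, edgeR adjusted p = 0.0043). Col3a1 and Col1a1 had no E9.5 value within the E8.5 range, nearest to it being E9.5 replicate 1 for Col3a1 and E9.5 replicate 2 for Col1a1. Col9a1 and Col16a1 rose (log2 fold changes 1.87 and 1.11), and Col12a1, Col14a1, Col5a1 and Col13a1 fell (log2 fold changes -1.73, -1.24, -0.92 and -0.68). Of the other matrix genes 10 of 31 glycoprotein and proteoglycan genes rose, 9 fell and 12 did not pass the test (median log2 fold change 0.25). For matrix genes, members that fell numbered 5 in the fit of the 2 stages alone and 3 with the gene span adjustment. Ptn (chromosome 6, 36714929 to 36810220, minus strand), pleiotrophin, a heparin-binding growth factor, rose from 3.99, 4.85 and 4.51 CPM at E8.5 to 12.5, 52.9 and 87.8 CPM at E9.5 (log2 fold change 3.52, SE 0.53, edgeR adjusted p = 0.00076). Dcn, decorin, a small proteoglycan of collagen fibres, rose from 0.476, 0.841 and 0.796 CPM at E8.5 to 2.07, 3.4 and 5.89 CPM at E9.5 (log2 fold change 2.44, SE 0.33, edgeR adjusted p = 0.000417). Ptn and Dcn showed no overlap between the stages, and E9.5 replicate 1 came nearest to E8.5 in each. Efemp1 and Thbs1 rose (log2 fold changes 2.89 and 1.45) and Ogn, Fbn2 and the glypicans Gpc3 and Gpc6 fell (log2 fold changes -0.73, -0.66, -0.63 and -0.57). Gpc6 turned to 0.02 with the span adjustment. Leaving out a single library ended the call, with its edgeR adjusted p, for Gpc6 (0.171 without E8.5 replicate 2, 0.079 without E8.5 replicate 3, 0.0974 without E9.5 replicate 1, 0.113 without E9.5 replicate 2 and 0.0751 without E9.5 replicate 3). Adjusted for span, the edgeR adjusted p left no call for Gpc3 (0.279) and Gpc6 (0.915). By over 1.5 times, the loss of 1 library moved Ptn (2.88 without E9.5 replicate 3). Overlapping intervals that may share reads were those of Ogn with Cenpp (8.39 times its counts).

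Of integrins and laminins, the links between cells and basement membrane, 6 of 28 genes rose, 12 fell and 10 did not pass the test (median log2 fold change -0.30). With the gene span adjustment 6 rose and 8 fell, and the median was -0.06. With that adjustment and E8.5 replicate 3 left out, 6 rose and 6 fell. Itga3, a laminin receptor subunit, Itga7, Itgav and Lama1 fell (log2 fold changes -1.08, -1.43, -0.69 and -1.68). Beside Itga4, given above, Lamc3, Itga8 and Lamb3 rose (log2 fold changes 1.47, 1.03 and 0.95). Calls that hung on 1 library, with the edgeR adjusted p, were those of Itga8 (0.0537 without E8.5 replicate 1, 0.0527 without E9.5 replicate 2 and 0.0765 without E9.5 replicate 3).

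Globin genes had the highest median of the 42 groups. By the test 6 of 10 globin genes rose, 0 fell and 4 did not pass the test (median log2 fold change 2.48), and the summed level was 1024, 1212 and 682 CPM at E8.5 and 4234, 8018 and 10686 CPM at E9.5. Primitive red cells make the embryonic chains Hba-x, Hbb-y and Hbb-bh1 together with the alpha chains Hba-a1 and Hba-a2. Hbb-y (chromosome 7, 103851749 to 103853216, minus strand), the embryonic epsilon-like chain, rose from 165, 158 and 53.9 CPM at E8.5 to 1111, 2449 and 3340.0 CPM at E9.5 (log2 fold change 4.19, SE 0.58, edgeR adjusted p = 0.000544). Hbb-bh1, the embryonic beta-like chain, rose from 298, 368 and 266 CPM at E8.5 to 869, 1656 and 2244 CPM at E9.5 (log2 fold change 2.35, SE 0.39, edgeR adjusted p = 0.00121). Hba-x (chromosome 11, 32276400 to 32278116, plus strand), the embryonic zeta chain, rose from 266, 356 and 226 CPM at E8.5 to 1036, 1814 and 2330.4 CPM at E9.5 (log2 fold change 2.61, SE 0.40, edgeR adjusted p = 0.000775). Hbb-y, Hbb-bh1 and Hba-x separated the stages in all 6 libraries, with E9.5 replicate 1 nearest to E8.5 in each. Hba-a1 (chromosome 11, 32283511 to 32284465, plus strand), an alpha chain used from embryo to adult, rose from 177, 199 and 91.4 CPM at E8.5 to 824, 1485 and 1953 CPM at E9.5 (log2 fold change 3.19, SE 0.46, edgeR adjusted p = 0.000605). Hba-a1 had no E9.5 value within the E8.5 range, replicate 1 being the nearest. Hba-a2, nearly identical to Hba-a1 in sequence so that the split of reads between them is uncertain, and Hbq1b rose too (log2 fold changes 3.12 and 2.64). The adult beta chains Hbb-bs and Hbb-bt, with Hbb-bh2 and Hbq1a, did not pass the test (Hbb-bs (log2 fold change 1.05, edgeR adjusted p = 0.169), Hbb-bt (log2 fold change 1.25, edgeR adjusted p = 0.106), Hbb-bh2 (log2 fold change 0.55, edgeR adjusted p = 0.352) and Hbq1a (log2 fold change 1.8, edgeR adjusted p = 0.0661)).

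Globin promoters are known to be driven by GATA1 and by KLF1, which binds CACCC boxes. The letters of a GATA motif, TGATAA, and of a CACCC box, CCACCC, were searched on both strands in the 250 bases before each RefSeq start, and the 2 motifs share no bases in the windows shown. TGATAA lay in 2609 of 32851 windows (7.94%), in 4 of 9 globin windows and in 6 of 16 erythroid windows. CCACCC lay in 9223 windows (28.1%), in 5 of 9 globin windows and in 10 of 16 erythroid windows. Hba-x, Hba-a1, Hba-a2 and Hbb-y held both, and all but that of Hba-a2, nearly identical to Hba-a1, are shown with the matches in capitals (TTATCA stands for the GATA motif on the other strand): chr11:32276350-32276599 (plus strand) for Hba-x, chr11:32283422-32283671 (plus strand) for Hba-a1 and chr7:103853208-103853457 (minus strand) for Hbb-y, all GRCm38. No binding was measured.
Hba-x: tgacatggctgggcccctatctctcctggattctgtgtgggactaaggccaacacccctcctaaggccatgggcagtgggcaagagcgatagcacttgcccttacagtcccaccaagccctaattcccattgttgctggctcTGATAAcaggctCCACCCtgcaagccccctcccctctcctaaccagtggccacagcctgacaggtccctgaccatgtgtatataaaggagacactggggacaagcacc
Hba-a1: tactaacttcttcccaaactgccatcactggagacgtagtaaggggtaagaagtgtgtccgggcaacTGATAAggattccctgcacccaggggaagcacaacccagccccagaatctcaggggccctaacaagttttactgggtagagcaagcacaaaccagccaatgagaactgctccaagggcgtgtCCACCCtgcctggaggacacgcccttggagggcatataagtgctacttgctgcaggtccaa
Hbb-y: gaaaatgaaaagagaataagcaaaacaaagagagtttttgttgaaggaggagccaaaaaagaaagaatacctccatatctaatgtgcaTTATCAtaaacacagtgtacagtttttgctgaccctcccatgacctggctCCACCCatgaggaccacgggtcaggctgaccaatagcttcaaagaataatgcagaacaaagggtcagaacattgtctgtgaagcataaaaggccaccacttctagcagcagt

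Erythroid genes outside the globins rose together: 21 of 21 erythroid genes rose, 0 fell and 0 did not pass the test (median log2 fold change 1.28). The summed level was 444, 524 and 363 CPM at E8.5 and 717, 1004 and 1208 CPM at E9.5. Without E8.5 replicate 3, 18 of 22 rose. Slc4a1, the anion exchanger band 3 of red cell membranes, rose from 28.3, 34.9 and 10.2 CPM at E8.5 to 73.4, 116 and 155 CPM at E9.5 (log2 fold change 2.23, SE 0.48, edgeR adjusted p = 0.00537). Hemgn, a nuclear protein of erythroid cells, rose from 2.63, 3.4 and 1.48 CPM at E8.5 to 8.01, 14.8 and 20.6 CPM at E9.5 (log2 fold change 2.53, SE 0.41, edgeR adjusted p = 0.00098). Slc4a1 and Hemgn showed no overlap between the stages, and E9.5 replicate 1 came nearest to E8.5 in each. Kel and Rhag, of the Kell and Rh blood group complexes, rose by log2 fold changes of 2.18 and 2.06. In the other blood lineages 5 of 25 genes of progenitors, platelets and macrophages rose, 4 fell and 16 did not pass the test (median log2 fold change -0.13). For these blood lineages, members that fell numbered 2 without E9.5 replicate 2. The platelet genes Pf4 and Gp9 and the myeloid gene Lyz2 rose (log2 fold changes 6.09, 3.04 and 1.85), and Mrc1, Kit, Cd52 and Itga2b fell (log2 fold changes -1.69, -0.86, -0.82 and -0.60). Single libraries, left out, ended the call by edgeR adjusted p of Cd52 (0.0809 without E8.5 replicate 3, 0.0766 without E9.5 replicate 2 and 0.0907 without E9.5 replicate 3) and Itga2b (0.0561 without E9.5 replicate 2). A single library moved by over 1.5 times the change of Lyz2 (2.45 without E8.5 replicate 1). Shared reads are possible for the overlapping Cd52 with Aim1l (1.38 times its counts).

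Visceral endoderm genes mostly fell, and the size of their fall rested on 1 library. This endoderm lines the yolk sac and makes apolipoproteins and uptake receptors. With all libraries 2 of 30 visceral endoderm genes rose, 20 fell and 8 did not pass the test (median log2 fold change -2.01). Without E8.5 replicate 3, 2 rose and 18 fell of 31, with a median of -0.57. Members that fell numbered 13 without E9.5 replicate 2 or 3, and the fit of the 2 stages alone gave 0 rises and 9 falls of 29. Apoc2 (chromosome 7, 19671579 to 19677941, minus strand), an apolipoprotein that activates lipoprotein lipase, fell from 3.17, 1.12 and 51.5 CPM at E8.5 to 0.0919, 0.147 and 0.274 CPM at E9.5 (log2 fold change -6.73, SE 1.4, edgeR adjusted p = 0.0045). Apob (chromosome 12, 7977648 to 8016835, plus strand), the core protein of secreted lipoprotein particles, fell from 54.3, 23.5 and 658 CPM at E8.5 to 2.52, 4.94 and 7.96 CPM at E9.5 (log2 fold change -5.57, SE 1.15, edgeR adjusted p = 0.00445). Cubn, cubilin, the uptake receptor of the yolk sac surface, fell from 46.2, 16.9 and 469.5 CPM at E8.5 to 2.64, 3.67 and 4.39 CPM at E9.5 (log2 fold change -5.63, SE 1.09, edgeR adjusted p = 0.00327). Apoc2, Apob and Cubn separated the stages in all 6 libraries, with E9.5 replicate 3 nearest to E8.5 in each. Apoa1, the main protein of high density lipoprotein, fell from 9.61, 2.7 and 111 CPM at E8.5 to 0.263, 1.26 and 1.9 CPM at E9.5 (log2 fold change -5.15, SE 1.24, edgeR adjusted p = 0.00946). Apoa1 had no E9.5 value within the E8.5 range, replicate 3 being the nearest. Spink1 and Apoa4 fell too (log2 fold changes -4.31 and -5.77). In E8.5 replicates 1 and 2 these genes were lower than in replicate 3 yet above E9.5 for the 4 given in full. Alb, albumin, rose from 0.0425, 0.0462 and 0.0362 CPM at E8.5 to 0.0131, 2.3 and 4.66 CPM at E9.5 (log2 fold change 5.76, SE 1.25, edgeR adjusted p = 0.00535). Afp, alpha-fetoprotein, was at 25.5, 5.66 and 246 CPM at E8.5 and 2.0, 61.5 and 112 CPM at E9.5 and did not pass the test (log2 fold change -0.66, SE 1.25, edgeR adjusted p = 0.707). Alb and Afp overlapped between the stages. The log2 fold change moved by over 1.5 times on the linear scale when 1 library was left out for Apoc2 (-3.60 without E8.5 replicate 3), Apob (-2.89 without E8.5 replicate 3), Cubn (-3.11 without E8.5 replicate 3), Apoa1 (-2.40 without E8.5 replicate 3), Spink1 (-2.41 without E8.5 replicate 3), Apoa4 (-3.40 without E8.5 replicate 3) and Alb (4.77 without E9.5 replicate 3). Reads may be shared between overlapping intervals for Apoc2 with Gm44805 (1.01 times its counts).

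Foregut endoderm and its epithelial genes fell in nearly all members, and 0 of 29 genes rose, 28 fell and 1 did not pass the test (median log2 fold change -1.95). Their summed level was 301, 338 and 634 CPM at E8.5 and 239.5, 213 and 217 CPM at E9.5. Leaving out E8.5 replicate 3 gave 26 falls and a median of -1.32, and the fit of the 2 stages alone 18 falls. Nkx2-1 (chromosome 12, 56531958 to 56536908, minus strand), the homeobox factor of thyroid and lung endoderm, fell from 0.442, 0.203 and 0.154 CPM at E8.5 to 0.0394, 0 and 0 CPM at E9.5 (log2 fold change -4.33, SE 0.86, edgeR adjusted p = 0.00279). Nkx2-3, a homeobox factor of pharyngeal endoderm, fell from 1.3, 1.84 and 3.67 CPM at E8.5 to 0.0394, 0.193 and 0.0799 CPM at E9.5 (log2 fold change -4.4, SE 0.50, edgeR adjusted p = 0.000151). Pax9, the paired factor of pharyngeal pouches, fell from 1.39, 2.94 and 3.66 CPM at E8.5 to 0.118, 0.249 and 0.354 CPM at E9.5 (log2 fold change -3.45, SE 0.40, edgeR adjusted p = 0.000148). Nkx2-1, Nkx2-3 and Pax9 showed no overlap between the stages, and the library nearest to E8.5 was E9.5 replicate 1 for Nkx2-1, E9.5 replicate 2 for Nkx2-3 and E9.5 replicate 3 for Pax9. Tmprss2, a serine protease of epithelial surfaces that the visceral endoderm list also holds, fell too (log2 fold change -4.4). Whether less endoderm was dissected with the E9.5 hearts was not tested. Leaving out 1 library moved by over 1.5 times the change of Nkx2-1 (-7.72 without E9.5 replicate 1), Nkx2-3 (-5.19 without E9.5 replicate 2) and Tmprss2 (-2.17 without E8.5 replicate 3). Intervals overlap, and reads may be shared, for Nkx2-1 with Gm26973 (2.59 times its counts) and Pax9 with Slc25a21 (19.7 times its counts).

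Genes of other tissues next to the heart gave smaller and mixed counts. For the earliest mesoderm, 1 of 15 primitive streak and early mesoderm genes rose, 7 fell and 7 did not pass the test (median log2 fold change -0.73). For primitive streak genes, members that fell numbered 3 in the fit of the 2 stages alone and 4 without E8.5 replicate 3 or E9.5 replicate 2 or 3. Their median log2 fold change was -0.26 without E8.5 replicate 3. Mesp1, the factor of the earliest cardiac mesoderm, rose from 0.0340, 0.0370 and 0.00904 CPM at E8.5 to 2.45, 1.41 and 1.68 CPM at E9.5 (log2 fold change 6.04, SE 0.53, edgeR adjusted p = 7.63e-05). Mesp1 separated the stages in all 6 libraries, with E9.5 replicate 2 nearest to E8.5. Cdx2, Lhx1, Nkx1-2 and Cdx1 fell (log2 fold changes -4.27, -3.29, -2.71 and -1.92). Of the ectoderm over the heart, 5 of 13 surface ectoderm genes rose, 1 fell and 7 did not pass the test (median log2 fold change 0.84). For surface ectoderm genes, members that rose numbered 2 with the replicate block, 2 in the fit of the 2 stages alone, 2 without the E8 libraries, 3 without E8.5 replicate 2, 3 without E9.5 replicate 2 and 2 without E9.5 replicate 3. Krt15, Grhl3, Trp63 and Wnt6 rose (log2 fold changes 3.29, 2.63, 1.63 and 1.26). For the neural tube 2 of 20 genes tested rose, 7 fell and 11 did not pass the test (median log2 fold change -0.59), and 10 listed genes lay below the filter on low counts. For neural tube genes, members that rose numbered 4 without E8.5 replicate 3, and the median log2 fold change of the group was then -0.18. Tubb3 and Sox3 rose (log2 fold changes 2.16 and 1.38), and Otx2, Six3, Sox2 and Gbx2 fell (log2 fold changes -3.6, -3.34, -2.73 and -2.07). From the neural crest, 9 of 23 crest and glial genes rose, 3 fell and 11 did not pass the test (median log2 fold change 0.69). Tfap2b, the AP-2 factor of neural crest, rose from 0.0510, 0.00924 and 0.0814 CPM at E8.5 to 0.105, 0.498 and 1.22 CPM at E9.5 (log2 fold change 3.65, SE 0.84, edgeR adjusted p = 0.00624). Tfap2b had no E9.5 value within the E8.5 range, replicate 1 being the nearest. Dlx2, Dlx1 and Hoxa2, of the crest that fills the arches, rose (log2 fold changes 2.72, 2.45 and 2.26), and Ret, Cdh6 and Ednra fell (log2 fold changes -2.9, -1.84 and -0.58). Of the paraxial mesoderm, 3 of 15 somite and skeletal muscle genes rose, 2 fell and 10 did not pass the test (median log2 fold change 0.25). For somite genes, members that rose numbered 5 without E8.5 replicate 3 and 0 in the fit of the 2 stages alone. They also numbered 0 without E8.5 replicate 2 or E9.5 replicate 2 or 3. Ripply2 and Meox1 rose (log2 fold changes 2.95 and 1.0) and Pax9 and Pax1, genes shared with pharyngeal endoderm, fell (log2 fold changes -3.45 and -2.34). With 1 library left out the call ended, by edgeR adjusted p, for Cdx2 (0.0705 without E8.5 replicate 3, 0.064 without E9.5 replicate 1, 0.0502 without E9.5 replicate 2 and 0.086 without E9.5 replicate 3), Nkx1-2 (0.334 without E8.5 replicate 3, 0.071 without E9.5 replicate 1, 0.0993 without E9.5 replicate 2 and 0.127 without E9.5 replicate 3), Cdx1 (0.0791 without E8.5 replicate 2, 0.0948 without E8.5 replicate 3, 0.128 without E9.5 replicate 2 and 0.141 without E9.5 replicate 3), Trp63 (0.0686 without E8.5 replicate 1, 0.123 without E8.5 replicate 2, 0.0864 without E9.5 replicate 2 and 0.176 without E9.5 replicate 3), Wnt6 (0.162 without E9.5 replicate 3), Ripply2 (0.0924 without E8.5 replicate 1, 0.101 without E8.5 replicate 2, 0.0511 without E9.5 replicate 1, 0.0861 without E9.5 replicate 2 and 0.0886 without E9.5 replicate 3) and Meox1 (0.0512 without E8.5 replicate 2, 0.0692 without E9.5 replicate 2 and 0.0905 without E9.5 replicate 3). By over 1.5 times, the loss of 1 library moved Cdx2 (-2.14 without E8.5 replicate 3 and -5.37 without E9.5 replicate 2), Lhx1 (-4.02 without E9.5 replicate 1), Nkx1-2 (-0.93 without E8.5 replicate 3), Cdx1 (-2.79 without E9.5 replicate 1), Trp63 (1.04 without E9.5 replicate 3), Tubb3 (2.83 without E8.5 replicate 3), Otx2 (-4.18 without E9.5 replicate 1), Six3 (-2.74 without E8.5 replicate 3), Tfap2b (4.28 without E8.5 replicate 3 and 2.65 without E9.5 replicate 3), Ripply2 (4.66 without E8.5 replicate 3) and Pax1 (-3.01 without E9.5 replicate 3). Overlapping intervals that may share reads were those of Nkx1-2 with Fgfr2 (10600.0 times its counts), Tubb3 with Gm20388 (836 times its counts), Six3 with Six3os1 (3.12 times its counts), Sox2 with Sox2ot (3.77 times its counts), Gbx2 with D130058E05Rik (1.05 times its counts), Dlx1 with Dlx1as (44.4 times its counts), Hoxa2 with Gm28308 (4.03 times its counts) and Ednra with 4933431K23Rik (1.15 times its counts).

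In the inner lining of heart and vessels, 3 of 34 endothelial and endocardial genes rose, 11 fell and 20 did not pass the test (median log2 fold change -0.14). For endothelial genes, members that rose numbered 5 with the gene span adjustment and 6 without E8.5 replicate 1, and those that fell numbered 3 in the fit of the 2 stages alone, 7 with the gene span adjustment, 7 without E9.5 replicate 2 and 5 without E9.5 replicate 3. Apln, apelin, the ligand of sprouting endothelium, fell from 0.646, 0.573 and 7.52 CPM at E8.5 to 0.512, 0.623 and 0.388 CPM at E9.5 (log2 fold change -2.52, SE 0.85, edgeR adjusted p = 0.0396). Dll4, the arterial Notch ligand, fell from 12, 10.3 and 7.29 CPM at E8.5 to 6.59, 5.53 and 4.92 CPM at E9.5 (log2 fold change -0.80, SE 0.16, edgeR adjusted p = 0.00287). Dll4 showed no overlap between the stages, and E9.5 replicate 1 came nearest to E8.5, whereas Apln overlapped between the stages. Aplnr and Flt1, receptors of apelin and VEGF, fell as well (log2 fold changes -1.48 and -0.76). Emcn, Tal1 and Icam2 rose (log2 fold changes 1.08, 0.65 and 0.55). Pecam1, the general endothelial marker, did not pass the test (log2 fold change 0.04 (edgeR adjusted p = 0.709)). Of the PDGF and VEGF systems, 1 of 17 genes rose, 7 fell and 9 did not pass the test (median log2 fold change -0.19). The placental growth factor Pgf rose (log2 fold change 0.96), and Nrp2, Pdgfd and Pdgfb fell (log2 fold changes -1.12, -1.04 and -0.75). The call did not survive the loss of 1 library, at the edgeR adjusted p in brackets, for Apln (0.354 without E8.5 replicate 3, 0.0942 without E9.5 replicate 1, 0.09 without E9.5 replicate 2 and 0.128 without E9.5 replicate 3). A single library moved by over 1.5 times the change of Apln (-0.24 without E8.5 replicate 3).

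Among ligands, receptors and targets of Notch, 3 of 22 pathway genes rose, 8 fell and 11 did not pass the test (median log2 fold change -0.29). For Notch genes, members that rose numbered 1 in the fit of the 2 stages alone, and those that fell numbered 5 in the fit of the 2 stages alone, 5 with the gene span adjustment and 5 without E9.5 replicate 3. The targets Heyl, Hey2 and Hey1 rose (log2 fold changes 1.22, 0.68 and 0.40), while the ligands Dll3, Dll4 and Jag1 fell (log2 fold changes -1.34, -0.80 and -0.52). Among BMP ligands, receptors and targets, 4 of 26 pathway genes rose, 9 fell and 13 did not pass the test (median log2 fold change -0.21). For BMP genes, members that rose numbered 2 in the fit of the 2 stages alone or without E8.5 replicate 2 or E9.5 replicate 2 or 3. Bmp4 and the targets Id2, Id4 and Bambi rose (log2 fold changes 0.29, 0.46, 0.46 and 0.39). Bmper, Chrdl1, Bmp6 and Bmp5, extracellular modulators and ligands, fell (log2 fold changes -0.88, -0.81, -0.76 and -0.73). Leaving out a single library ended the call, with its edgeR adjusted p, for Dll3 (0.126 without E8.5 replicate 3, 0.118 without E9.5 replicate 2 and 0.0563 without E9.5 replicate 3), Bmp4 (0.0572 without E8.5 replicate 2, 0.0617 without E9.5 replicate 2 and 0.0798 without E9.5 replicate 3) and Id4 (0.156 without E8.5 replicate 2, 0.121 without E9.5 replicate 1, 0.0978 without E9.5 replicate 2 and 0.0789 without E9.5 replicate 3). With the gene span adjustment the call ended, at the edgeR adjusted p in brackets, for Bmp4 (0.068) and Id4 (0.0683).

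For Wnt signalling, 12 of 30 pathway genes rose, 6 fell and 12 did not pass the test (median log2 fold change 0.36). For Wnt genes, members that rose numbered 7 without E9.5 replicate 3, and those that fell numbered 3 in the fit of the 2 stages alone. Rspo2, an R-spondin, which strengthens Wnt signals, rose from 0.765, 1.03 and 0.552 CPM at E8.5 to 2.35, 2.93 and 3.61 CPM at E9.5 (log2 fold change 1.92, SE 0.26, edgeR adjusted p = 0.000315). Rspo2 separated the stages in all 6 libraries, with E9.5 replicate 1 nearest to E8.5. Rspo1 and the ligands Wnt7a and Wnt9a rose (log2 fold changes 1.72, 1.68 and 1.58), and the ligand Wnt5a and the nuclear factors Tcf7l1, Lef1 and Tcf7 fell (log2 fold changes -0.95, -1.24, -0.82 and -0.63). For retinoic acid, 7 of 19 pathway genes rose, 7 fell and 5 did not pass the test (median log2 fold change -0.26). For retinoic acid genes, members that rose numbered 3 in the fit of the 2 stages alone. Retinoic acid made at the venous pole patterns the tube along its length. Cyp26a1, a retinoic acid degrading enzyme, fell from 4.41, 4.91 and 11.9 CPM at E8.5 to 1.6, 1.19 and 0.959 CPM at E9.5 (log2 fold change -2.5, SE 0.35, edgeR adjusted p = 0.000441). Aldh1a2, the main retinoic acid synthesising enzyme of the embryo, rose from 1.04, 2.65 and 1.36 CPM at E8.5 to 2.65, 4.35 and 8.65 CPM at E9.5 (log2 fold change 1.64, SE 0.41, edgeR adjusted p = 0.0111). Cyp26a1 had no E9.5 value within the E8.5 range, replicate 1 being the nearest, whereas Aldh1a2 overlapped between the stages. Cyp26c1, the uptake receptor Stra6 and the carrier Rbp4, a visceral endoderm gene, fell too (log2 fold changes -1.99, -0.76 and -3.57), and Cyp26b1 rose (log2 fold change 1.17). Among Hox genes, whose anterior members answer to retinoic acid, 7 of 26 genes tested rose, 1 fell and 18 did not pass the test (median log2 fold change 0.12), with 13 listed genes below the filter. Hoxa4, Hoxa5, Hoxc4 and Hoxa3 rose (log2 fold changes 4.01, 3.85, 2.49 and 2.4) and Hoxc8 fell (log2 fold change -2.29). Calls that hung on 1 library, with the edgeR adjusted p, were those of Wnt7a (0.0597 without E8.5 replicate 1 and 0.115 without E9.5 replicate 3), Lef1 (0.0501 without E8.5 replicate 2 and 0.0546 without E9.5 replicate 3), Cyp26b1 (0.141 without E8.5 replicate 2, 0.135 without E9.5 replicate 1, 0.0856 without E9.5 replicate 2 and 0.0697 without E9.5 replicate 3) and Hoxc8 (0.677 without E8.5 replicate 3, 0.127 without E9.5 replicate 1, 0.119 without E9.5 replicate 2 and 0.0894 without E9.5 replicate 3). The span adjustment ended, by edgeR adjusted p, the call of Cyp26b1 (0.056). The log2 fold change moved by over 1.5 times on the linear scale when 1 library was left out for Cyp26a1 (-1.87 without E8.5 replicate 3), Rbp4 (-1.89 without E8.5 replicate 3), Cyp26b1 (1.89 without E8.5 replicate 1), Hoxa4 (8.10 without E8.5 replicate 3), Hoxc4 (1.80 without E9.5 replicate 3) and Hoxc8 (-0.30 without E8.5 replicate 3). Shared reads are possible for the overlapping Tcf7 with Gm26551 (30.1 times its counts), Hoxa4 with Gm28308 (11.1 times its counts), Hoxa5 with Gm28308 (7.19 times its counts), Hoxa3 with Gm28308 (1.35 times its counts) and Hoxc8 with Hoxc5 (3.21 times its counts).

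Of the semaphorin and ephrin systems, 5 of 38 guidance genes rose, 12 fell and 21 did not pass the test (median log2 fold change -0.19). For guidance genes, members that rose numbered 8 with the gene span adjustment. Epha3 (chromosome 16, 63543538 to 63864158, minus strand), an Eph receptor required in endocardial cushions, rose from 0.960, 0.934 and 0.850 CPM at E8.5 to 2.4, 11 and 18 CPM at E9.5 (log2 fold change 3.52, SE 0.56, edgeR adjusted p = 0.00109). Epha3 showed no overlap between the stages, and E9.5 replicate 1 came nearest to E8.5. Sema3d, Efnb3 and Epha5 rose (log2 fold changes 2.18, 1.0 and 0.57), and Ephb2, Ephb1, Epha7 and the semaphorin receptor Nrp2 fell (log2 fold changes -1.62, -1.53, -1.08 and -1.12). Leaving out 1 library moved by over 1.5 times the change of Epha3 (2.88 without E9.5 replicate 3).

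Genes of the early embryo fell more often than they rose: 0 of 18 pluripotency and oncofetal genes rose, 13 fell and 5 did not pass the test (median log2 fold change -0.67), with 1 risen without E8.5 replicate 3. Pou5f1 (chromosome 17, 35506018 to 35510772, plus strand), the pluripotency factor Oct4, fell from 0.119, 0.268 and 0.190 CPM at E8.5 to 0.0394, 0.0906 and 0.0571 CPM at E9.5 (log2 fold change -1.59, SE 0.43, edgeR adjusted p = 0.0137). Tdgf1, the Nodal co-receptor Cripto, fell from 29.8, 41.8 and 59.5 CPM at E8.5 to 18.9, 12 and 8.27 CPM at E9.5 (log2 fold change -1.74, SE 0.29, edgeR adjusted p = 0.00122). Pou5f1 and Tdgf1 separated the stages in all 6 libraries, the nearest being E9.5 replicate 1 for Tdgf1 and E9.5 replicate 2 for Pou5f1. L1td1, an RNA-binding protein of pluripotent cells, fell by a log2 fold change of -1.89. Lin28a (chromosome 4, 134003330 to 134018841, minus strand), the RNA-binding protein that blocks let-7 and a member chosen after its values were seen, fell from 166, 171 and 269.7 CPM at E8.5 to 104, 58.4 and 51.2 CPM at E9.5 (log2 fold change -1.5, SE 0.29, edgeR adjusted p = 0.00256). Lin28a had no E9.5 value within the E8.5 range, replicate 1 being the nearest. Of the enzymes that write and erase DNA methylation, 1 of 12 genes rose, 5 fell and 6 did not pass the test (median log2 fold change -0.27). For these enzymes, members that fell numbered 2 in the fit of the 2 stages alone. Dnmt3b (chromosome 2, 153649450 to 153687730, plus strand), the de novo DNA methyltransferase of the series title, fell from 30.8, 37.5 and 55.6 CPM at E8.5 to 24.2, 19 and 19.1 CPM at E9.5 (log2 fold change -0.99, SE 0.18, edgeR adjusted p = 0.00167). Dnmt3a, its later acting relative, rose from 79.1, 62.3 and 52.2 CPM at E8.5 to 95.6, 107 and 105 CPM at E9.5 (log2 fold change 0.67, SE 0.12, edgeR adjusted p = 0.00167). Dnmt3b and Dnmt3a showed no overlap between the stages, and E9.5 replicate 1 came nearest to E8.5 in each. Tet3, Tet1 and Tdg, which act in demethylation, fell (log2 fold changes -0.77, -0.50 and -0.32). Dnmt1, the maintenance enzyme, did not pass the test (log2 fold change 0.13 (edgeR adjusted p = 0.245)). Single libraries, left out, ended the call by edgeR adjusted p of Pou5f1 (0.0655 without E8.5 replicate 2 and 0.0577 without E9.5 replicate 3) and Tet3 (0.0553 without E8.5 replicate 2).

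For proliferation, 17 of 35 cell cycle genes rose, 1 fell and 17 did not pass the test (median log2 fold change 0.31). For cell cycle genes, members that rose numbered 26 without E8.5 replicate 3. They numbered 11 in the fit of the 2 stages alone or without E9.5 replicate 2 or 3. The inhibitors Cdkn2c and Cdkn1a, the mitotic cyclin Ccnb2 and Myc rose (log2 fold changes 0.97, 0.64, 0.62 and 0.60), E2f7 fell (log2 fold change -0.41), and Mki67 did not pass the test (log2 fold change 0.19 (edgeR adjusted p = 0.257)). Of imprinted genes, 4 of 20 growth genes rose, 5 fell and 11 did not pass the test (median log2 fold change -0.08). For imprinted genes, members that fell numbered 8 with upper-quartile scaling or DESeq2, 9 without E8.5 replicate 1 and 1 in the fit of the 2 stages alone. They numbered 3 with no filter on low counts, with the gene span adjustment and without the E8 or E14 libraries. They also numbered 3 without E8.5 replicate 3 or E9.5 replicate 2 or 3. H19, the maternally expressed non-coding RNA, rose from 1896, 1924 and 2872 CPM at E8.5 to 3510.2, 3937 and 3949 CPM at E9.5 (log2 fold change 0.77, SE 0.16, edgeR adjusted p = 0.00303). H19 separated the stages in all 6 libraries, with E9.5 replicate 1 nearest to E8.5. Dlk1, Nnat and Ndn rose (log2 fold changes 0.68, 0.55 and 0.46), and Phlda2, Kcnq1ot1, Peg10 and Snrpn fell (log2 fold changes -2.08, -0.71, -0.58 and -0.34). With 1 library left out the call ended, by edgeR adjusted p, for Cdkn1a (0.0853 without E9.5 replicate 2 and 0.0781 without E9.5 replicate 3), Nnat (0.0781 without E8.5 replicate 1, 0.0861 without E8.5 replicate 2, 0.054 without E9.5 replicate 2 and 0.0894 without E9.5 replicate 3), Kcnq1ot1 (0.0547 without E8.5 replicate 2 and 0.0592 without E9.5 replicate 3) and Peg10 (0.061 without E8.5 replicate 3, 0.0737 without E9.5 replicate 1 and 0.117 without E9.5 replicate 2). After adjustment for gene span the edgeR adjusted p no longer passed for Snrpn (0.964). By over 1.5 times, the loss of 1 library moved Phlda2 (-1.27 without E8.5 replicate 3). Reads may be shared between overlapping intervals for Nnat with Blcap (1.69 times its counts), Ndn with Gm45009 (1.07 times its counts), Kcnq1ot1 with Kcnq1 (1.05 times its counts) and Snrpn with Gm38393 (1.98 times its counts).

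Of 4355 long non-coding genes tested, 498 (11.4%) rose and 732 (16.8%) fell, beside 18.4% and 18.5% of all genes. Both shares were thus below those of all genes, that of rises by more. In the list of named ones 7 of 28 genes rose, 8 fell and 13 did not pass the test (median log2 fold change -0.24). For the long non-coding list, members that fell numbered 4 in the fit of the 2 stages alone and 5 without E9.5 replicate 3. Dnm3os (chromosome 1, 162217623 to 162225550, plus strand), a transcript on the strand opposite to an intron of Dnm3, host of 2 microRNA hairpins, rose from 0.501, 0.444 and 0.181 CPM at E8.5 to 0.591, 5.02 and 8.4 CPM at E9.5 (log2 fold change 3.63, SE 0.73, edgeR adjusted p = 0.00363). Wt1os, the antisense partner of Wt1, rose from 0.595, 1.14 and 0.145 CPM at E8.5 to 1.22, 3.42 and 5.29 CPM at E9.5 (log2 fold change 2.41, SE 0.59, edgeR adjusted p = 0.00985). Dnm3os and Wt1os had no E9.5 value within the E8.5 range, replicate 1 being the nearest in each. Dlx6os1 and H19 of the list rose as well (log2 fold changes 1.67 and 0.77), and Snhg11, Sox2ot, Airn and Kcnq1ot1 fell (log2 fold changes -1.99, -1.26, -0.76 and -0.71). Outside the list, Hoxaas3, Mir99ahg, Redrum and Ttc39aos1 rose (log2 fold changes 2.36, 1.73, 1.25 and 1.24). Mir99ahg hosts microRNAs of the miR-99 and let-7 families. Platr13, Platr15, Lhx1os, Platr21, Dnmt3bos and Bcas3os1 fell (log2 fold changes -4.48, -3.03, -2.85, -1.51, -1.51 and -1.3). The strand of the counted reads is not given in the sources used here, so an antisense gene and its partner cannot be told apart, which bears on Dnm3os, Wt1os, Airn, Kcnq1ot1, Dnmt3bos, Bcas3os1 and other antisense genes. The call did not survive the loss of 1 library, at the edgeR adjusted p in brackets, for Airn (0.0626 without E8.5 replicate 1, 0.124 without E8.5 replicate 2, 0.0834 without E9.5 replicate 2 and 0.106 without E9.5 replicate 3), Redrum (0.0639 without E8.5 replicate 1, 0.0572 without E8.5 replicate 3, 0.066 without E9.5 replicate 2 and 0.086 without E9.5 replicate 3) and Dnmt3bos (0.0609 without E9.5 replicate 2). Adjusted for span, the edgeR adjusted p left no call for Airn (0.0733). A single library moved by over 1.5 times the change of Dnm3os (2.90 without E9.5 replicate 3), Wt1os (3.15 without E8.5 replicate 2), Platr13 (-1.96 without E8.5 replicate 3), Platr15 (-1.66 without E8.5 replicate 3) and Platr21 (-0.71 without E8.5 replicate 3). Intervals overlap, and reads may be shared, for Dnm3os with Dnm3 (3.71 times its counts), Airn with Igf2r (2.67 times its counts), Hoxaas3 with Gm28308 (1.88 times its counts), Dnmt3bos with Dnmt3b (41.4 times its counts) and Bcas3os1 with Bcas3 (23.8 times its counts).

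The hairpins of Mir199a-2 and Mir214 lie inside the Dnm3os interval on its strand. Their mature sequences (RefSeq, GRCm38.p6, chromosome 1, plus strand) are shown because their host was among the long non-coding genes with the largest rise, with the seed, bases 2 to 8, in capitals. No 2 of the 4 share a seed. Mature microRNAs were not measured by these libraries.
miR-199a-5p: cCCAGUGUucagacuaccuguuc
miR-199a-3p: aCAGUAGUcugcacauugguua
miR-214-5p: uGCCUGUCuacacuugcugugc
miR-214-3p: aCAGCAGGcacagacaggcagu

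Reads on microRNA intervals may come from the hairpin or from a host gene, and 891 of the 956 intervals tested lie inside or over another gene. Of the 956, 237 rose and 40 fell, and with the span adjustment 110 rose and 120 fell. Mir3473a, Mir6540, Mir1960, Mir207, Mir6944 and Mir367 had the largest rises (log2 fold changes 4.89, 2.9, 1.81, 1.76, 1.74 and 1.66), and Mir6236, Mir3113 and Mir682 fell (log2 fold changes -3.64, -0.88 and -0.35). Small nucleolar RNAs, often encoded within introns, guide modification of ribosomal RNA. Of 556 tested, 220 rose and 10 fell, or 142 and 33 with the span adjustment, and 517 of the 556 overlap another gene. Snord32a, a box C/D RNA in an intron of Rpl13a, rose from 17.4, 15.3 and 21.9 CPM at E8.5 to 52.6, 57.2 and 62.1 CPM at E9.5 (log2 fold change 1.65, SE 0.13, edgeR adjusted p = 1.87e-05). Snord32a was named under a rule that required no overlap between the stages, and E9.5 replicate 1 came nearest to E8.5. Snord14e and Snord59a, in introns of Hspa8 and Atp5b, rose by log2 fold changes of 1.48 and 1.21. Leaving out a single library ended the call, with its edgeR adjusted p, for Mir6540 (0.102 without E8.5 replicate 1, 0.0711 without E8.5 replicate 2, 0.0593 without E9.5 replicate 1, 0.0819 without E9.5 replicate 2 and 0.0927 without E9.5 replicate 3) and Mir682 (0.0908 without E8.5 replicate 1, 0.143 without E8.5 replicate 3, 0.129 without E9.5 replicate 1 and 0.0773 without E9.5 replicate 2). With the gene span adjustment the call ended, at the edgeR adjusted p in brackets, for Mir6540 (0.0622). The log2 fold change moved by over 1.5 times on the linear scale when 1 library was left out for Mir6540 (4.43 without E8.5 replicate 3). Overlapping intervals that may share reads were those of Mir3473a with Syap1 (43.1 times its counts), Mir6540 with Gap43 (20.8 times its counts), Mir1960 with Hadhb (31.1 times its counts), Mir207 with Dnaja1 (20.9 times its counts), Mir6944 with Dbn1 (40.9 times its counts), Mir367 with Larp7 (34.8 times its counts), Mir3113 with Huwe1 (111 times its counts), Mir682 with Gm4149 (1.91 times its counts), Snord32a with Rpl13a (12.3 times its counts), Snord14e with Hspa8 (33.2 times its counts) and Snord59a with Atp5b (20.4 times its counts).

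Outside the groups, several genes had large changes or changes with little spread. They were chosen among genes that did not overlap between the stages, so their separation was set by that choice. Trim30a (chromosome 7, 104409025 to 104465193, minus strand), an interferon-inducible tripartite motif protein, rose from 2.83, 3.44 and 1.94 CPM at E8.5 to 37.3, 31.7 and 34.9 CPM at E9.5 (log2 fold change 3.66, SE 0.32, edgeR adjusted p = 5.22e-05). Pklr, the liver and red cell pyruvate kinase, rose from 2.09, 1.84 and 1.75 CPM at E8.5 to 8.14, 17.5 and 22.1 CPM at E9.5 (log2 fold change 3.07, SE 0.38, edgeR adjusted p = 0.000235). Aldh1b1, a mitochondrial aldehyde dehydrogenase, rose from 2.88, 2.38 and 1.94 CPM at E8.5 to 8.23, 15.6 and 19.9 CPM at E9.5 (log2 fold change 2.6, SE 0.27, edgeR adjusted p = 0.0001). The library nearest to E8.5 was E9.5 replicate 1 for Pklr and Aldh1b1 and E9.5 replicate 2 for Trim30a. Among genes chosen for the smallest p, which favours a small spread, Pom121l2, Serpinb6b, Zfp184 and Lsp1 rose (log2 fold changes 1.77, 1.37, 0.86 and 0.75). Serpinb6b, a serpin, was at 4.76, 4.76 and 4.06 CPM at E8.5 and 11.2, 12.3 and 11.6 CPM at E9.5.

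Genes of varied function fell outside the groups. They too were chosen among genes that did not overlap between the stages. Prdm1 (chromosome 10, 44437177 to 44528501, minus strand), the repressor BLIMP1, of pharyngeal and germ cell precursors, fell from 9.31, 16.5 and 13.9 CPM at E8.5 to 2.39, 1.47 and 1.47 CPM at E9.5 (log2 fold change -2.9, SE 0.24, edgeR adjusted p = 2.53e-05). Kcnip1 (chromosome 11, 33629339 to 33993152, minus strand), a modulator of voltage-gated potassium channels, fell from 47.6, 46.2 and 72.6 CPM at E8.5 to 9.38, 8.02 and 7.97 CPM at E9.5 (log2 fold change -2.71, SE 0.18, edgeR adjusted p = 6.83e-06). Thbs4 (chromosome 13, 92751590 to 92794818, minus strand), a thrombospondin of muscle matrix, fell from 179, 201 and 154 CPM at E8.5 to 60.7, 38.6 and 37.2 CPM at E9.5 (log2 fold change -1.97, SE 0.17, edgeR adjusted p = 3.35e-05). The library nearest to E8.5 was E9.5 replicate 1 in each of Prdm1, Kcnip1 and Thbs4. Rbfox3, the neuronal splicing factor NeuN, fell from 28.7, 48.7 and 16.2 CPM at E8.5 to 9.78, 3.93 and 3.09 CPM at E9.5 (log2 fold change -2.48, SE 0.45, edgeR adjusted p = 0.00211). In Rbfox3 too E9.5 replicate 1 came nearest to E8.5. Irx2, an Iroquois homeobox factor, and Arhgap21, a GTPase-activating protein, fell too (log2 fold changes -1.43 and -1.47). Fam19a2, Zcchc16, Sgcz, Rassf4, Kng2, Rims3, Dph5 and Osbpl10 fell as well (log2 fold changes -2.58, -2.11, -2.22, -1.63, -1.01, -1.79, -0.97 and -1.05). Leaving out 1 library moved by over 1.5 times the change of Rbfox3 (-3.15 without E9.5 replicate 1).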

How the data were processed

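Total RNA of dissected cardiogenic regions was sequenced in 12 mouse libraries, 3 at each of 4 stages. The authors deposited raw read counts for 48709 gene intervals, 1 column per library. The submitters' notes name STAR 2.5.0 and Cufflinks 2.2.1. Which program counted the reads, with which strand setting and with or without introns, is not given in the sources used here. Interval lengths, strands and gene classes came from GENCODE M21 (GRCm38), where 42778 intervals were identical to an annotated gene, 5645 matched by symbol and overlap, and 286 were unmatched. Another interval overlaps 21428 of them, and the 37 mitochondrial genes are listed at 0.

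Libraries held 56574386 to 122785175 counts. Genes passing filterByExpr (28846) were scaled by TMM (factors 0.913 to 1.07) and fitted with edgeR 4.0.16 (robust quasi-likelihood, common dispersion 0.0362) in R 4.3.3, with 1 mean per stage over all 12 libraries, the contrast E9.5 minus E8.5 and Benjamini-Hochberg adjustment over all genes tested. SE is the absolute log2 fold change divided by the square root of F. In simulated data of 28233 genes, 100 were changed by log2 1 and 100 by log2 2. The fit recovered 78% and 97% of these, and 2.23% of its calls were false. With so few changed genes, that is not the false share of the real calls.

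Alternatives were RLE and upper-quartile scaling, other filters on low counts, a replicate block, fits of fewer stages or libraries, DESeq2 1.42.0, a test against a log2 fold change of 1, library offsets smoothed over gene span (limma 3.58.1), and RNA classes left out. The 2 fits that combine the absence of E8.5 replicate 3 with another change were chosen after seeing the data.

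The members and gene lists were chosen with earlier results of these data known, so lists are described by counts and medians and have no test. Listed genes below the filter are in no count. Genes named are up to 4 called members with the largest rise and fall per list, members that define a list, a set of 25 cardiac and tissue markers, the 12 in each direction with the largest change or the smallest p that did not overlap between stages, were also called without E8.5 replicate 3 and reached 10 CPM, and up to 6 non-coding and microRNA genes in each direction, and a few that meet this rule are not reported here. Sequences are RefSeq's (GRCm38.p6). Figures were drawn with matplotlib 3.10.9.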

Additional observations from a re-analysis of the deposited data

How the results depend on the processing

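The count of genes that rose (5316) stayed within 1.5 times under every alternative except the fit of the 2 stages alone (3353) and the test against a log2 fold change of 1 (198), and the count that fell (5343) gave 2746 and 183 there. Leaving out each of the 6 libraries in turn gave 3628 to 6968 risen and 3366 to 6047 fallen genes, the most without E8.5 replicate 3. Without E9.5 replicate 2 or 3 the fallen count (3366 and 3416) was lower by over 1.5 times. DESeq2 called 5575 and 5451 genes, RLE scaling 5323 and 5276, and upper-quartile scaling, which moved the median log2 fold change to -0.07, 4997 and 5893. Of the 310 named genes that were called, DESeq2 lost 3, upper-quartile scaling 1 and RLE scaling 0, the fit of the 2 stages alone 58 and the test against a log2 fold change of 1 lost 241. Calls lost in the fit of the 2 stages alone are not marked at each gene above. Single libraries cost 14 to 44 of these calls. The span adjustment kept 4488 of the 5316 rises and 3863 of the 5343 falls. Among named called genes the log2 fold change changed sign for Asph (0.054, or 0.2151 also without E8.5 replicate 3) and Gpc6 (0.0228 or 0.1866). Gpc3 and Snrpn changed sign only without that library (0.0067 and 0.1029). The cause was not tested.

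The replicate numbers are not said to pair libraries across stages. Deviations of same-numbered libraries from their stage means correlated at 0.0335, -0.0828 and 0.134, and not every library correlated best with its own number: E8.5 replicate 2 correlated at 0.19 with E9.5 replicate 1. With the replicate block 5028 genes rose and 4835 fell, of which 4927 and 4755 were among those called without it, and 8 named calls were lost.

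Between libraries of a stage the mean chi-square per gene was 85.4 to 203 at E8.5 and 20 to 47.5 at E9.5. It was 8.46 to 22.4 at E8 and 23.5 to 92.1 at E14, so the stages pooled in the fit differed in spread. All lie above the level of about 1 from counting error alone, so the number of libraries, more than depth, limits precision. Genes below the filter on low counts could not be tested.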
